A study of Drosophila melanogaster with 54 samples.

Results

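Heads of Drosophila melanogaster with reduced BEAF-32 were compared after life at a warm and at a cool temperature, across all genes. The comparison took in every library labelled as BEAF-32 knockdown, 3 at 29 °C and 3 at 18 °C, which are 6 of the 54 samples of the series. Knockdown flies carried a UAS-RNAi transgene against BEAF-32, driven throughout the body by actin5C-gal4, and were set at 29 °C and at 18 °C. Control flies carried actin5C-gal4 without that transgene, with wild type as the genotype label, and were likewise set at 29 °C and at 18 °C with 3 libraries each. The label YW is given as the strain of all 4 groups. All flies were reared at 25 °C and spent 3 days after hatching at the test temperature under a cycle of 12 h light and 12 h dark. Whole heads were used, so the RNA comes from eye, brain, fat body, muscle, cuticle cells and antennae together. The labels do not state sex, the hour of collection or how many flies made up a library. The series uses these libraries to ask whether BEAF-32 takes part in the transcriptional response of fly heads to warmth.

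BEAF-32 is a DNA-binding protein of chromatin boundaries, or insulators, and in flies it sits close to the start sites of many housekeeping genes. Temperature acts on every cell of an animal that does not hold its body heat. In flies, warmth is known to raise chaperones that keep proteins folded, to alter the daily clock and its splicing, and to speed up growth and ageing, while cold slows these processes and calls on stores of fat and sugar.

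BEAF-32 itself had 2.65, 2.75 and 0.515 at 29 °C, against 1.62, 2.69 and 3.50 CPM at 18 °C in knockdown heads, where CPM is the count scaled to the same total in every library and values run in the order of libraries 1 to 3. Control heads had 32.8, 35.5 and 35.1 at 29 °C, against 32.2, 34.4 and 39.1 CPM at 18 °C, so the genotypes did not overlap and the temperatures did. Its level was 15.98-fold lower in knockdown than in control heads at 29 °C (edgeR adjusted p = 1.25e-10) and 13.03-fold lower at 18 °C (edgeR adjusted p = 5.43e-10). Within knockdown heads no temperature difference of BEAF-32 passed the test (log2 -0.31 ± 0.39, edgeR adjusted p = 0.569; log2 stands here and below for the log2 fold change of 29 °C over 18 °C, with its SE). Its sign turned without knockdown 29 °C library 3 or 18 °C library 3.

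The 6 knockdown libraries held 2905211 to 6393926 counts each, so that a gene with no count could have had up to 0.469 to 1.03 CPM (the limit that 3 counts set, for counting error only). Whether the libraries of 1 group stem from separate cultures is not stated, and p-values therefore reflect the spread among these libraries, which may be technical. On the first principal component, which held 64.3% of the variance of the knockdown libraries, the 3 warm libraries lay apart from the 3 cool ones. Marker genes of photoreceptors, neurons and glia were at high levels in every library, while those of gut, ovary and testis summed to at most 4.63 CPM. Knockdown 18 °C libraries 2 and 3 stood apart in some antennal genes, such as Obp83a and Obp83b. The sum over all odorant-binding proteins did not follow this, at 13481, 12497 and 10836 CPM in knockdown 18 °C libraries 1 to 3. Knockdown 29 °C library 1 stood apart in having the least roX1 RNA of the warm knockdown libraries (113 CPM), and knockdown 18 °C library 2 in low immune peptides. Control 29 °C library 1 was also high in Obp83a and Obp83b, control 29 °C library 2 in flight muscle genes, and control 18 °C library 2 had the least roX1 of all (54.1 CPM). Control 18 °C library 2 and knockdown 29 °C library 1 are called the libraries low in roX1 below. Each had the least of its group, but this does not define the pair. Control 29 °C library 1, at 183.5 CPM, and knockdown 18 °C library 1 also had the least of their groups and are not among them. Knockdown 18 °C libraries 1 and 3, at 102 and 110 CPM, lay under knockdown 29 °C library 1 but are not among them. The sum of 4.63 CPM was that of testis and accessory gland markers in knockdown 29 °C library 3, where a longer list of 30 such genes summed to 65.1 CPM, against 13.65 to 26.8 CPM in the other libraries. In bulk samples such as these, fewer cells of a type and less RNA per cell cannot be told apart.

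Warmth changed many genes in knockdown heads, with falls slightly ahead of rises. Of 9056 tested genes, 3216 (35.5%) passed a Benjamini-Hochberg adjusted p of 0.05 in edgeR's quasi-likelihood test. These were 1507 raised genes (16.6%) and 1709 lowered genes (18.9%) at 29 °C. Counts of raised and lowered list members below are to be read beside these shares. A difference of at least 2-fold was found for 280 raised and 375 lowered genes, and of at least 4-fold for 59 and 98. The median log2 fold change of 29 °C over 18 °C was -0.01 over all tested genes. All 3 warm libraries lay above all 3 cool ones for 1980 genes (21.9%) and below them for 2105 genes (23.2%). With libraries scaled by their totals alone the split became 911 raised and 2416 lowered, since this scaling moved the median of all genes by -0.14, and directions below are relative to the TMM scaling. Knockdown 18 °C libraries 2 and 3 and control 29 °C library 1 are called the antennal libraries, or libraries high in antennal genes, below. The name stands for some antennal genes, such as Obp83a and Obp83b, and not for all odorant-binding proteins. A fit without them leaves 1 knockdown 18 °C library. In the control heads 3439 genes (38.0%) were called between the temperatures. The difference between the genotypes, the log2 fold change in knockdown heads minus that in control heads, is called the interaction below and passed the test for 209 genes (2.31%).

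**Figure D1:**
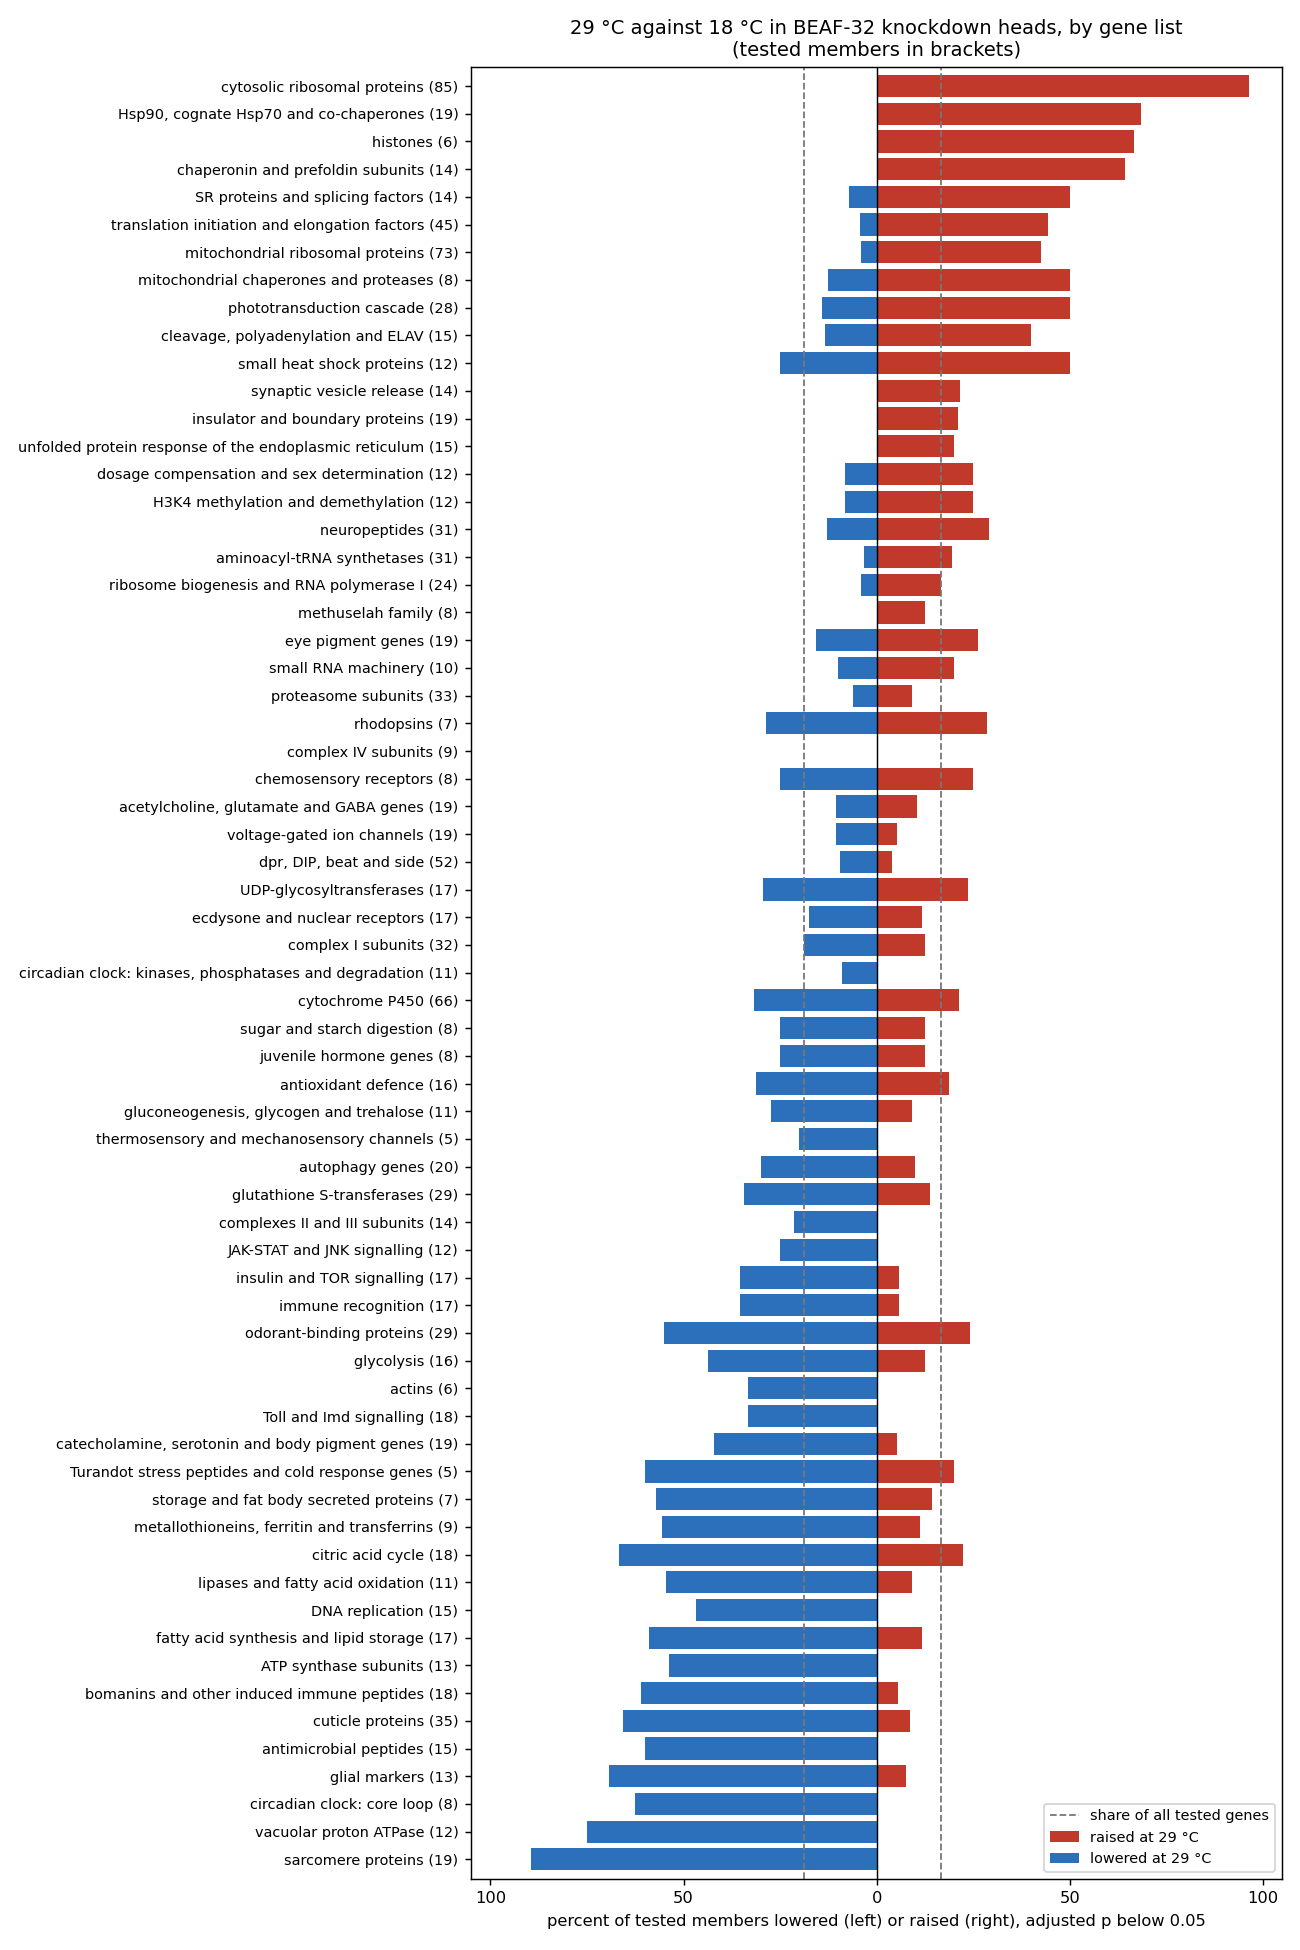
Share of the tested members of each gene list that passed the test, lowered at 29 °C to the left and raised to the right, in percent, with 29 °C set against 18 °C in BEAF-32 knockdown heads. Dashed lines give the shares of all tested genes (16.6% raised and 18.9% lowered). Cytosolic ribosomal proteins stand at the top with 82 of 85 raised and sarcomere proteins at the bottom with 17 of 19 lowered. Lists with fewer than 5 tested members are not drawn.

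Among single genes, those with the largest rises encoded a storage protein, heat shock proteins, enzymes and a caspase. Lsp1beta, a larval serum protein that stores amino acids, had 317, 224 and 346 at 29 °C, against 2.16, 3.03 and 3.72 CPM at 18 °C. The groups lay 97.0-fold apart, the largest rise of the table (log2 6.60 ± 0.31, edgeR adjusted p = 1.72e-12). CG3348 had 277, 286 and 371 at 29 °C, against 44.6, 56.9 and 43.5 CPM at 18 °C (log2 2.70 ± 0.19, edgeR adjusted p = 6.66e-10). CG8147, an alkaline phosphatase also named phu, had 832, 466 and 650.3 at 29 °C, against 95.9, 134 and 84.0 CPM at 18 °C (log2 2.65 ± 0.31, edgeR adjusted p = 1.11e-06). In both genes every warm library lay above every cool one. The control heads gave a smaller log2 fold change of 0.79 for CG8147, and the difference between the genotypes passed the test (interaction log2 1.86 ± 0.42, edgeR adjusted p = 0.0182), but was not past the threshold without knockdown 29 °C library 1 or knockdown 18 °C library 3 or control 29 °C library 2 or 3 and log2 1.21 without control 18 °C library 2. CG18673, a carbonic anhydrase also named CAH5, had 14.9, 12.6 and 14.7 at 29 °C, against 0.540, 2.69 and 0.219 CPM at 18 °C (log2 3.80 ± 0.46, edgeR adjusted p = 1.71e-06). Its few counts at 18 °C set the size of the fold, which on the log2 scale became 5.18 without knockdown 18 °C library 2 and 3.19 without knockdown 18 °C library 3. Strica, a caspase that takes part in cell death, had 9.64, 16 and 10.6 at 29 °C, against 1.62, 0.673 and 3.06 CPM at 18 °C (log2 2.64, edgeR adjusted p = 2.57e-06, and log2 3.33 without knockdown 18 °C library 3). CG43064 had 9.83, 10.5 and 10.3 at 29 °C, against 1.62, 1.01 and 1.97 CPM at 18 °C (log2 2.66, edgeR adjusted p = 1.46e-04). The groups overlapped in none of these genes.

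Cuticle, crystallin and antennal genes led the falls among genes with a mean of at least 5 CPM, no overlap between the groups and a call in every fit without 1 library. CG7214 had 6.80, 4.20 and 8.50 at 29 °C, against 557, 587 and 592 CPM at 18 °C. All 3 warm libraries were lower, by 92.1-fold (log2 -6.53 ± 0.46, edgeR adjusted p = 9.42e-10). Crys, which encodes a crystallin of the corneal lens, had 4.16, 3.23 and 4.89 at 29 °C, against 60.8, 59.9 and 75.2 CPM at 18 °C (log2 -4.04 ± 0.24, edgeR adjusted p = 6.57e-11). Acp1, an adult cuticle protein, had 83.7, 61.4 and 63.1 at 29 °C, against 1177, 959 and 1175 CPM at 18 °C, a 15.9-fold fall (edgeR adjusted p = 1.05e-08). CG31904 had nearly the same counts as Acp1 in every library, so reads of these 2 genes cannot be told apart. Diedel, a secreted peptide that dampens immune signalling, had 0.756, 0.646 and 0.515 at 29 °C, against 14.0, 19.2 and 13.8 CPM at 18 °C, with all warm libraries lower (log2 -4.52 ± 0.63, edgeR adjusted p = 8.67e-06). CG13639 had 0.189, 1.13 and 0.772 at 29 °C, against 10.5, 9.76 and 10.1 CPM at 18 °C (log2 -3.78, edgeR adjusted p = 4.04e-08, and -4.45 without knockdown 29 °C library 2). CG18609, a fatty acid elongase by annotation, had 0.189, 0.485 and 0.515 at 29 °C, against 42.7, 11.4 and 17.5 CPM at 18 °C. Between 1 and 3 counts stand behind each warm value, so its fall passed the test (edgeR adjusted p = 1.08e-07) but its size is not well set. The falls of Jhedup, Obp19a, Obp83a, Obp28a and Obp69a rest in part on knockdown 18 °C libraries 2 and 3 and are given with the chemosensory genes. Genes outside these limits, looked at after their values were seen, had further large falls. The lowest log2 fold change of the table belonged to Os-C, an olfactory-specific gene, with 0, 0 and 0 at 29 °C, against 0, 29.9 and 24.5 CPM at 18 °C, so that 18 °C libraries 2 and 3 held all its reads in knockdown heads (edgeR adjusted p = 0.0072), and no fold is given. Obp83b, GstE4 and TwdlE, a cuticle gene, were called lower at log2 -5.46, -5.16 and -5.27 (edgeR adjusted p = 2.79e-04, 4.93e-05 and 8.73e-08).

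**Figure D2:**
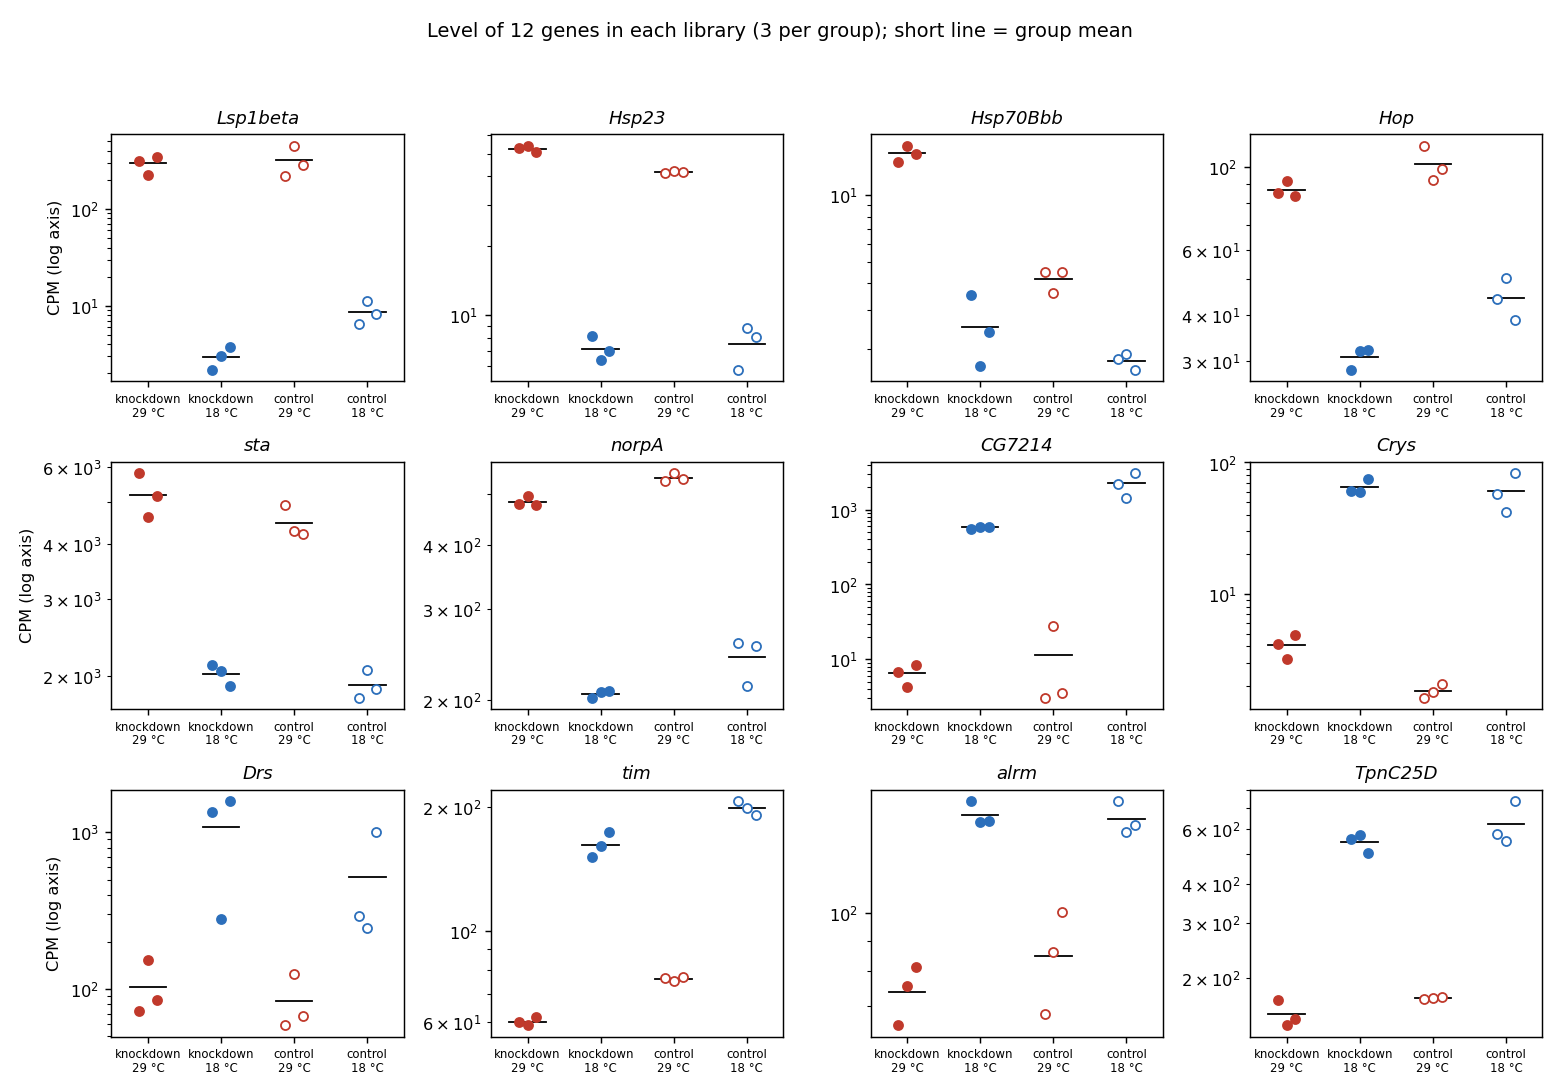
Level of 12 genes in each of 12 libraries, in CPM on a log axis that differs between panels, with knockdown heads as filled and control heads as open circles, 29 °C in red and 18 °C in blue. Short lines are group means of 3 libraries. In the knockdown heads the 3 red points lie clear of the 3 blue ones in every panel, above them for Lsp1beta, Hsp23, Hsp70Bbb, Hop, sta and norpA and below them for the other 6.

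Measured in counts, the largest shifts fell on genes of vision, translation and yolk. The Rh1 opsin ninaE had 21856, 20247 and 21212 at 29 °C, against 14266, 13866 and 12977 CPM at 18 °C (log2 0.62 ± 0.08, edgeR adjusted p = 3.38e-06). Arr2, an arrestin that shuts off active opsin, had 14099, 14206 and 14841 at 29 °C, against 10018, 9918 and 9058 CPM at 18 °C (log2 0.57 ± 0.08, edgeR adjusted p = 7.90e-06). Both were higher in every warm library. RpL5 rose by 1.83-fold, the elongation factor gene Ef1alpha48D by 1.47-fold and the metallothionein MtnA by 1.88-fold (edgeR adjusted p = 3.76e-07, 6.47e-04 and 1.23e-05). Yp2, a yolk protein, had 15266, 10595 and 14067 at 29 °C, against 23433, 32581 and 20039 CPM at 18 °C, and all 3 warm libraries were lower (log2 -0.93 ± 0.21, edgeR adjusted p = 0.00127). EbpIII, a secreted protein first found in the ejaculatory bulb, had 2683, 3251 and 3037 at 29 °C, against 4915, 4830.3 and 4189 CPM at 18 °C (log2 -0.64, edgeR adjusted p = 1.16e-05).

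In every list of chaperones raised genes outnumbered lowered ones. Among the inducible Hsp70 proteins, which are made under stress and refold proteins, the 4 of 7 members that passed the filter on low counts were all raised, with a median log2 fold change of 2.42 in knockdown and 1.09 in control heads, and no member passed the test of the difference between genotypes. Hsp70Bbb had 14.2, 16.8 and 15.4 at 29 °C, against 3.51, 1.68 and 2.40 CPM at 18 °C (log2 2.58 ± 0.24, edgeR adjusted p = 5.07e-08). Hsp68 had 15.3, 23.1 and 21.4 at 29 °C, against 3.24, 6.73 and 4.81 CPM at 18 °C (log2 2.04 ± 0.22, edgeR adjusted p = 4.10e-07). The warm libraries were above the cool ones for Hsp70Ba and Hsp70Bc too, at log2 2.58 and 2.27 (edgeR adjusted p = 2.61e-06 and 1.30e-05). Few counts at 18 °C set these folds, and they became 3.25 without knockdown 18 °C library 1 for Hsp70Ba and 2.88 without knockdown 18 °C library 3 for Hsp70Bc. The Hsp70 copies are near-identical, so the counting could split reads between them.

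Small heat shock proteins, which hold unfolded proteins without using ATP, moved both ways: 6 of 12 were raised and 3 lowered. Hsp23 had 52.7, 54.1 and 50.7 at 29 °C, against 8.10, 6.39 and 7.00 CPM at 18 °C, a 7.29-fold rise (log2 2.87 ± 0.14, edgeR adjusted p = 2.45e-12). Hsp22, which acts in mitochondria, and Hsp67Bb shared nearly equal counts of 43.1, 62.5 and 44.8 at 29 °C, against 8.37, 9.08 and 5.90 CPM at 18 °C (log2 2.73 ± 0.23, edgeR adjusted p = 1.41e-08) and cannot be told apart. Hsp26 and Hsp27, members picked here after their values were seen, rose by log2 1.66 and 2.12 (edgeR adjusted p = 2.60e-08 and 1.89e-05). CG7409 went the other way, with 131, 117 and 115 at 29 °C, against 277, 274 and 217 CPM at 18 °C (log2 -1.08 ± 0.10, edgeR adjusted p = 2.54e-08). CG13133, likewise picked after the fact, had 1.70, 0.970 and 0.258 at 29 °C, against 8.64, 5.05 and 5.03 CPM at 18 °C (log2 -2.56, edgeR adjusted p = 6.75e-05).

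Of the Hsp90 machine, cognate Hsp70 proteins and their partners, 13 of 19 were raised and none lowered (median 0.32). Hop, which passes client proteins between Hsp70 and Hsp90, had 85.0, 91.6 and 83.9 at 29 °C, against 28.4, 32.0 and 32.1 CPM at 18 °C, the clearest rise of the list (log2 1.50 ± 0.11, edgeR adjusted p = 1.39e-09). CG1416, DnaJ-1, a partner of Hsp70, and Cdc37, a partner of Hsp90, rose by log2 1.14, 0.79 and 0.79 (edgeR adjusted p = 6.70e-08, 7.14e-07 and 1.89e-06). The chaperonin that folds actin and tubulin, with prefoldin, had 9 of 14 subunits raised and none lowered, CG8258 (CCT8) and mgr among them, at log2 0.62 and 0.78 (edgeR adjusted p = 2.62e-05 and 1.07e-04). Mitochondrial chaperones and proteases had 4 raised and 1 lowered of 8. Among them the co-chaperonin CG11267 had 244, 236 and 220.1 at 29 °C, against 102, 102 and 97.3 CPM at 18 °C (log2 1.22 ± 0.08, edgeR adjusted p = 3.74e-10), and Hsp60 and Hsc70-5 rose by log2 0.80 and 0.49 (edgeR adjusted p = 1.15e-07 and 3.94e-05). With libraries scaled by totals alone, 9 of the Hsp90 list and 4 of the chaperonin list were raised and none lowered.

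Few proteasome genes were called. Of 33 tested proteasome subunits 3 were raised and 2 lowered, against 0 raised and 15 lowered in control heads. In knockdown heads raised members numbered 1 without knockdown 18 °C library 3 and lowered members numbered 1 without knockdown 29 °C library 2 or knockdown 18 °C library 2 and 4 without knockdown 29 °C library 1, and scaling by totals alone gave 0 raised and 9 lowered. No proteasome subunit passed the test of the difference between the genotypes. Prosbeta3 fell (log2 -0.42, edgeR adjusted p = 3.10e-04) and Prosalpha4 rose (log2 0.35, edgeR adjusted p = 0.00403). Autophagy genes counted 2 raised and 6 lowered of 20, where raised members numbered 1 without knockdown 29 °C library 2 or knockdown 18 °C library 1 or 3. Among the lowered was ref(2)P, the receptor that brings cargo to the autophagosome. It had 106, 115 and 116 at 29 °C, against 151, 142 and 161 CPM at 18 °C, with no overlap (log2 -0.43 ± 0.08, edgeR adjusted p = 2.38e-04). The unfolded protein response of the endoplasmic reticulum had 3 of 15 raised (20.0%, beside 16.6% of all tested genes) and 0 lowered, but 1 raised and 6 lowered with totals alone (lowered members numbered 1 without knockdown 29 °C library 2 or knockdown 18 °C library 2 and 3 without knockdown 18 °C library 3). Its transcription factor crc, the fly ATF4, had 926, 1039 and 1058 at 29 °C, against 737, 702 and 702 CPM at 18 °C (log2 0.50 ± 0.07, edgeR adjusted p = 2.10e-05). Autophagy counts became 1 raised and 11 lowered with totals alone and 1 and 2 without the antennal libraries. The counts of the unfolded protein response became 1 raised and 3 lowered without the antennal libraries, and those of the proteasome 0 and 2.

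Among translation genes, cytosolic ribosomal proteins rose most widely. Of 85 tested cytosolic ribosomal proteins 82 were raised and none lowered, with a median log2 fold change of 0.67, and 82 were raised with totals alone. In control heads 81 were raised at a median of 0.56, and no member passed the test of the difference between genotypes. The most certain member, sta, a protein of the small subunit, had 5807, 4614 and 5137 at 29 °C, against 2115, 2053 and 1893 CPM at 18 °C, with no overlap (log2 1.36 ± 0.10, edgeR adjusted p = 9.30e-10). RpS14b and RpS20 rose by log2 1.03 and 1.01 (edgeR adjusted p = 2.36e-08 for both). RpL24-like, which is in the list by its symbol alone, rose by log2 1.03 (edgeR adjusted p = 1.67e-09). RpS14b has a near-identical copy, RpS14a, and the counting could split reads between them.

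Initiation and elongation factors followed, with 20 of 45 raised and 2 lowered (median 0.24, lowered members numbered 1 without knockdown 29 °C library 2 or 3). Tango7, a subunit of initiation factor eIF3, had 574, 472 and 537 at 29 °C, against 226, 229 and 218 CPM at 18 °C (log2 1.23 ± 0.09, edgeR adjusted p = 7.63e-10). CG9769 and CG5642, also eIF3 subunits, and CG7414 (eIF2A) rose by log2 0.90, 0.78 and 1.12 (edgeR adjusted p = 5.40e-08, 9.87e-08 and 2.31e-08). Thor, the fly 4E-BP that blocks cap-dependent initiation, went down instead. It had 424, 351 and 349.6 at 29 °C, against 588, 592 and 662 CPM at 18 °C in knockdown heads, with all warm libraries lower (log2 -0.71 ± 0.09, edgeR adjusted p = 2.59e-06). In control heads Thor had 362, 345 and 310.3 at 29 °C, against 328, 351 and 364 CPM at 18 °C, and the difference between genotypes passed the test (interaction log2 -0.68 ± 0.13, edgeR adjusted p = 0.0044), though not without the 3 libraries high in antennal genes. Initiation and elongation factor counts became 17 raised and 4 lowered with totals alone and 16 and 1 without the antennal libraries.

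Aminoacyl-tRNA synthetases had 6 of 31 raised and 1 lowered (lowered 0 without knockdown 18 °C library 1, 2 or 3 or knockdown 29 °C library 2), among them Aats-tyr (log2 0.45, edgeR adjusted p = 6.91e-04). Of 24 genes for ribosome assembly 4 were raised and 1 lowered, against 2 and 4 with totals alone (raised members numbered 2 without knockdown 29 °C library 1 and lowered members numbered 2 without knockdown 29 °C library 1 or knockdown 18 °C library 1). Raised members were 19.35% of the synthetases and 16.67% of the ribosome assembly genes, near the 16.6% of all tested genes. Non1, a nucleolar GTPase of large subunit assembly, had 770.2, 619 and 659.6 at 29 °C, against 312, 323 and 345 CPM at 18 °C (log2 1.06 ± 0.09, edgeR adjusted p = 1.51e-08), and Nmd3, an export adaptor of the large subunit, fell (log2 -0.56, edgeR adjusted p = 2.33e-04). Mitochondrial ribosomal proteins had 31 of 73 raised and 3 lowered at a median of 0.28, against 14 and 9 at 0.07 in control heads. Totals alone gave 15 raised and 4 lowered in knockdown heads. Of these proteins mRpL49 alone passed the test of the difference, with 67.8, 70.0 and 71.1 at 29 °C, against 39.2, 42.4 and 31.1 CPM at 18 °C in knockdown heads (interaction log2 0.59 ± 0.15, edgeR adjusted p = 0.0361), and it was not past the threshold without knockdown 29 °C library 1, 2 or 3 or knockdown 18 °C library 3 or control 29 °C library 1, 2 or 3 or control 18 °C library 1 or 3. Synthetase counts became 3 raised and 2 lowered with totals alone and 3 and 0 without the antennal libraries. Ribosome assembly counts became 2 raised and 0 lowered without the antennal libraries. Mitochondrial ribosomal protein counts became 9 raised and 2 lowered without the antennal libraries.

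Nuclear-encoded subunits of the respiratory chain, which turn fuel into ATP in mitochondria, were for the most part lowered in control heads and less often in knockdown heads. Over complexes I to IV and ATP synthase, 16 of 68 tested subunits were lowered at 29 °C in knockdown heads and 59 of 68 in control heads (36 in knockdown and 62 in control heads with totals alone). Of all 9056 tested genes, 1709 (18.9%) were lowered in knockdown heads and 1794 in control heads. In all 68 the log2 fold change was higher in knockdown than in control heads, by a median of 0.36, where 49.8% of all tested genes had the higher value in knockdown heads. The 68 values come from the same 12 libraries, and 4 of the 68 passed the test of the difference (2.31% of all tested genes), namely ND-B18, Cyt-c-p, COX7A and cype. That number ranged between 1 without control 18 °C library 1 and 34 without control 18 °C library 2, and was 0 without the 3 libraries high in antennal genes and 11 without those low in roX1.

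By complex, complex I had 4 raised and 6 lowered of 32, where raised members numbered 2 without knockdown 29 °C library 3 or knockdown 18 °C library 3. The lowered share of complex I, 18.75%, was near the 18.9% of all tested genes. Complexes II and III had 3 lowered of 14. Complex IV had none of 9 called, though lowered members numbered 1 without knockdown 18 °C library 3, and ATP synthase 7 lowered of 13 (lowered members numbered 4 without knockdown 29 °C library 2 or 3 or knockdown 18 °C library 1 or 2). ATPsynbeta, the catalytic subunit, had 1501, 1454 and 1579.5 at 29 °C, against 2396, 2312 and 2269 CPM at 18 °C, with no overlap (log2 -0.62 ± 0.08, edgeR adjusted p = 3.49e-06). SdhA and SdhB of succinate dehydrogenase fell by 0.46 and 0.43 on the log2 scale (edgeR adjusted p = 7.48e-05 and 2.38e-04). ND-PDSW of complex I rose, with 383, 349 and 367 at 29 °C, against 265, 274 and 242 CPM at 18 °C (log2 0.49 ± 0.08, edgeR adjusted p = 9.51e-05). ND-42 of the same complex fell, with 207, 191 and 186 at 29 °C, against 264, 272 and 248 CPM at 18 °C (log2 -0.42 ± 0.08, edgeR adjusted p = 4.65e-04). In neither did the groups overlap. COX4 had 1248, 1233 and 1229 at 29 °C, against 1426, 1379.6 and 1254 CPM at 18 °C in knockdown heads, and a difference did not pass the test (log2 -0.13 ± 0.08, edgeR adjusted p = 0.233). In control heads it did (log2 -0.52 ± 0.08, edgeR adjusted p = 3.18e-05). Complex I counts became 2 raised and 14 lowered with totals alone and 2 and 4 without the antennal libraries. With totals alone 5 subunits of complexes II and III, 6 of complex IV and 11 of ATP synthase were lowered and none raised.

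**Figure D3:**
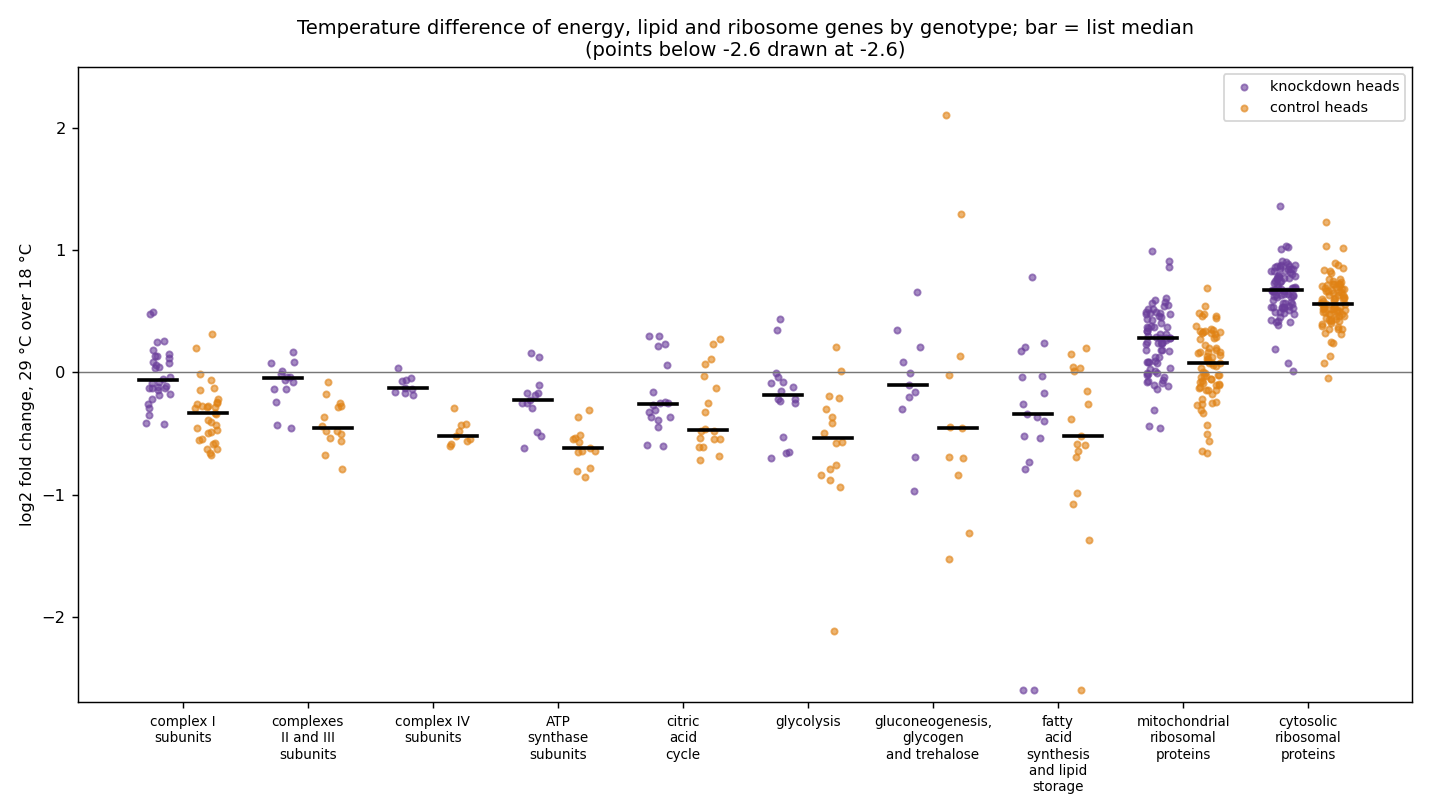
Log2 fold change of 29 °C over 18 °C for each tested gene of 10 lists of energy, lipid and ribosome genes, in knockdown heads in purple and control heads in orange, with black bars at the list medians. Medians of complex IV are -0.13 in knockdown and -0.52 in control heads, and those of cytosolic ribosomal proteins 0.67 and 0.56. Points under the axis range are drawn at its lower edge.

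Citric acid cycle genes had 4 raised and 12 lowered of 18 at a median of -0.26 (raised members numbered 2 without knockdown 29 °C library 3 or knockdown 18 °C library 2 or 3 and lowered members numbered 7 without knockdown 18 °C library 1). The 3 subunits of NAD-dependent isocitrate dehydrogenase, a control point of the cycle, fell. The alpha subunit l(1)G0156 had 174, 169 and 165 at 29 °C, against 252, 255 and 262 CPM at 18 °C, with no overlap (log2 -0.60 ± 0.08, edgeR adjusted p = 7.21e-06). CG5028 and CG6439, the gamma and beta subunits, changed by log2 -0.59 and -0.39 (edgeR adjusted p = 2.02e-05 and 5.03e-04). The NADP-dependent enzyme Idh fell as well (log2 -0.44, edgeR adjusted p = 1.11e-04). Citric acid cycle counts became 0 raised and 13 lowered with totals alone and 0 and 9 without the antennal libraries.

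In glycolysis 2 of 16 genes were raised and 7 lowered in knockdown heads (lowered members numbered 4 without knockdown 29 °C library 2 or knockdown 18 °C library 1), against 1 and 13 in control heads. With totals alone 2 were raised and 13 lowered in knockdown heads and 14 lowered in control heads. The difference between genotypes passed the test for 7 of the 16 (2.31% of all tested genes), and in all 7 the fold change was higher in knockdown heads. Between 5 and 7 passed when any 1 library was left out, but 1 without the 3 libraries high in antennal genes. Pgi, which converts glucose 6-phosphate to fructose 6-phosphate, had 620.4, 647 and 639.8 at 29 °C, against 488, 481 and 438 CPM at 18 °C in knockdown heads and rose (log2 0.44 ± 0.07, edgeR adjusted p = 6.55e-05). Control heads had 601, 599 and 574 at 29 °C, against 582, 588 and 595 CPM at 18 °C for Pgi, where the groups overlapped (interaction log2 0.43 ± 0.10, edgeR adjusted p = 0.0265). The difference of Pgi was not past the threshold without knockdown 29 °C library 2 or 3 or knockdown 18 °C library 3 or control 29 °C library 2 or 3 or control 18 °C library 1 or 3. The other 6 are named here after their values were seen. ImpL3, the lactate dehydrogenase, had 19.6, 26.2 and 19.3 at 29 °C, against 31.3, 39.4 and 36.7 CPM at 18 °C in knockdown heads, 1.62-fold lower in warmth. In control heads it had 8.76, 10.8 and 10.3 at 29 °C, against 40.7, 46.2 and 42.0 CPM at 18 °C, 4.33-fold lower (interaction log2 1.41 ± 0.19, edgeR adjusted p = 2.07e-04). Eno, the enolase, gave log2 -0.00 in knockdown and -0.50 in control heads, Gapdh1 -0.25 and -0.84, Hex-C -0.24 and -0.76, Gpdh -0.22 and -0.79 and Gpo-1 -0.22 and -0.94 (edgeR adjusted p of the differences 0.00911, 0.00521, 0.00918, 0.00525 and 0.0178). Hex-A, Pgk and Pfk fell in knockdown heads by 0.66, 0.65 and 0.53 on the log2 scale (edgeR adjusted p = 1.71e-06, 2.65e-06 and 2.68e-05), and for these 3 the difference between genotypes was not called. Glycolysis counts became 1 raised and 5 lowered without the antennal libraries.

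Genes that make and store sugar had 1 raised and 3 lowered of 11 in knockdown heads (raised members numbered 0 without knockdown 18 °C library 3 or knockdown 29 °C library 1 and 2 without knockdown 29 °C library 3), and 5 of the 11 passed the test of the difference (4 or 5 without any 1 library, and 2 without the libraries high in antennal genes). AGBE, the branching enzyme of glycogen, had 122, 117 and 118 at 29 °C, against 218, 186 and 174 CPM at 18 °C in knockdown heads (log2 -0.69 ± 0.09, edgeR adjusted p = 6.26e-06). In control heads it fell further, by log2 -1.53 (interaction log2 0.83 ± 0.13, edgeR adjusted p = 8.24e-04). CG10924, a phosphoenolpyruvate carboxykinase of gluconeogenesis, had 7.56, 6.30 and 10.3 at 29 °C, against 18.6, 10.4 and 16.6 CPM at 18 °C in knockdown heads, lower in all warm libraries (log2 -0.97 ± 0.26, edgeR adjusted p = 0.00592). Control heads had 2.24, 2.19 and 2.80 at 29 °C, against 1.26, 0.136 and 0.268 CPM at 18 °C, higher in warmth (interaction log2 -3.08 ± 0.62, edgeR adjusted p = 0.00743), from few counts at 18 °C (log2 -4.55 without control 18 °C library 1, log2 -2.44 without control 18 °C library 2). Pepck, the sister enzyme, had 634, 396 and 552 at 29 °C, against 416, 319 and 268 CPM at 18 °C in knockdown heads (log2 0.66 ± 0.18, edgeR adjusted p = 0.0065). Its groups overlapped, and it was not past the threshold without knockdown 29 °C library 1 or knockdown 18 °C library 3 (edgeR adjusted p 0.0523 to 0.0529). GlyP, UGP and Tps1, which break down glycogen, supply UDP-glucose and make trehalose, differed between genotypes by log2 0.74, 0.50 and 0.54 (edgeR adjusted p = 0.00153, 0.0316 and 0.0127), and were picked after their values were seen. Of the glucosidases and amylases, tobi, a target of the glucagon-like hormone of flies, had 72.2, 80.3 and 89.3 at 29 °C, against 32.1, 9.76 and 19.7 CPM at 18 °C (log2 1.94 ± 0.25, edgeR adjusted p = 2.98e-06). Mal-B2 fell in knockdown heads (log2 -0.43, edgeR adjusted p = 4.66e-04) and further in control heads (interaction log2 0.60 ± 0.12, edgeR adjusted p = 0.00864). That difference of Mal-B2 did not pass without the 3 libraries high in antennal genes. Gluconeogenesis, glycogen and trehalose counts became 1 raised and 6 lowered with totals alone and 0 and 3 without the antennal libraries. In control heads 7 of these 11 genes were lowered with totals alone.

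Fat metabolism fell on balance. Of 17 genes for fatty acid synthesis and lipid storage 2 were raised and 10 lowered (median -0.34), where raised members numbered 1 without knockdown 29 °C library 1, 2 or 3 or knockdown 18 °C library 2 or 3. Of 11 lipases and oxidation genes 1 was raised and 6 were lowered (median -0.33), where raised members numbered 0 without knockdown 29 °C library 1 or 3 or knockdown 18 °C library 1 or 3 or control 29 °C library 1, 2 or 3 or control 18 °C library 1 or 3. Desat1, the stearoyl-CoA desaturase, had 2015, 2113 and 2159 at 29 °C, against 3828, 3369 and 3681 CPM at 18 °C, with all warm libraries lower (log2 -0.79 ± 0.08, edgeR adjusted p = 9.42e-08). Lsd-1, a perilipin that coats lipid droplets, had 206, 199 and 208 at 29 °C, against 109.9, 134 and 114 CPM at 18 °C, higher in all warm libraries (log2 0.78 ± 0.10, edgeR adjusted p = 3.37e-06). Control heads had 253, 229 and 204 at 29 °C, against 225, 282 and 255 CPM at 18 °C for Lsd-1, where the groups differed in neither direction past the test (interaction log2 0.93 ± 0.14, edgeR adjusted p = 5.07e-04). ATPCL, which makes the acetyl-CoA for fatty acids, had 185, 186 and 188 at 29 °C, against 166, 162 and 156 CPM at 18 °C in knockdown heads (log2 0.21 ± 0.07, edgeR adjusted p = 0.0362), and it was not past the threshold without knockdown 29 °C library 1, 2 or 3 or knockdown 18 °C library 2 or 3 (edgeR adjusted p 0.0629 to 0.118). In control heads ATPCL fell (log2 -0.64), and the difference passed the test (interaction log2 0.85 ± 0.10, edgeR adjusted p = 8.04e-05). Arc42 and yip2, of fatty acid oxidation, fell by 0.75 and 0.67 on the log2 scale (edgeR adjusted p = 1.41e-06 and 1.71e-06). Fatty acid synthesis and storage counts became 1 raised and 11 lowered with totals alone and 1 and 7 without the antennal libraries. Lipase and oxidation counts became 0 raised and 8 lowered with totals alone and 0 and 5 without the antennal libraries.

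Fat body and yolk genes split. The list of storage and fat body secreted proteins had 1 of 7 raised, Lsp1beta, and 4 lowered. fit, a female-biased satiety peptide of the head fat body, had 124, 176 and 134 at 29 °C, against 529.6, 520.1 and 475 CPM at 18 °C (log2 -1.81 ± 0.23, edgeR adjusted p = 2.35e-06). to, a circadian feeding gene, had 31.0, 29.7 and 29.4 at 29 °C, against 57.0, 52.5 and 60.3 CPM at 18 °C (log2 -0.92 ± 0.11, edgeR adjusted p = 1.72e-06). Lsp2 had 162, 107 and 154 at 29 °C, against 443, 272 and 178 CPM at 18 °C in knockdown heads, where the largest value belonged to 18 °C library 1 (log2 -1.08 ± 0.33, edgeR adjusted p = 0.013), and was not past the threshold without knockdown 29 °C library 2 or knockdown 18 °C library 1 (edgeR adjusted p 0.067 to 0.139). Control heads had 18.3, 76.2 and 36.6 at 29 °C, against 365, 509.6 and 719.7 CPM at 18 °C for Lsp2, a wider gap (interaction log2 2.52 ± 0.47, edgeR adjusted p = 0.0044, and log2 3.18 without control 29 °C library 2). Yp1 and Yp3 did not pass the test at log2 0.28 and 0.03 (edgeR adjusted p = 0.27 and 0.925), and Yp1 was highest in 29 °C library 1 at 43265 CPM. Beside these, the female markers Yp1, Yp2 and Yp3 summed to 57592 to 87246 CPM at 29 °C and 63542 to 95079 CPM at 18 °C.

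The male X chromosome RNA roX2, which guides dosage compensation, had 28.7, 82.9 and 64.9 at 29 °C, against 8.64, 17.2 and 7.65 CPM at 18 °C, higher in all warm libraries (log2 2.47 ± 0.37, edgeR adjusted p = 2.18e-05), and its partner roX1 had 113, 256 and 205 at 29 °C, against 102, 138 and 110.2 CPM at 18 °C, with a difference that did not pass (log2 0.72 ± 0.30, edgeR adjusted p = 0.0644). Without 29 °C library 1 roX1 passed as well (log2 0.995, edgeR adjusted p = 0.0136). That library was lowest in both roX RNAs among the warm ones and highest in Yp1, and the part of its make-up in these results was not tested. dsx, the switch of somatic sex, had 10.8, 9.70 and 11.8 at 29 °C, against 18.9, 20.2 and 20.3 CPM at 18 °C (log2 -0.89 ± 0.15, edgeR adjusted p = 5.61e-05), and differed from control heads (interaction log2 -0.88 ± 0.20, edgeR adjusted p = 0.0207), a difference not past the threshold without knockdown 29 °C library 2 or knockdown 18 °C library 3 or control 29 °C library 1 or 3 or control 18 °C library 1. Of the 12 genes of dosage compensation and sex determination 3 were raised and 1 lowered (raised members numbered 1 without knockdown 18 °C library 3). Dosage compensation and sex determination counts became 1 raised and 1 lowered with totals alone and 1 and 1 without the antennal libraries.

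Immune effectors fell. None of 15 tested antimicrobial peptides was raised and 9 were lowered at a median of -1.18 (raised members numbered 1 without knockdown 18 °C library 1 or control 18 °C library 2 or 3 and lowered members numbered 5 without knockdown 29 °C library 1 or knockdown 18 °C library 3). Drs, the main antifungal peptide, had 72.4, 153 and 85.7 at 29 °C, against 1350.1, 282 and 1589 CPM at 18 °C. All 3 warm libraries were lower, and 18 °C library 2 stood far under the other two at that temperature (log2 -3.37 ± 0.52, edgeR adjusted p = 3.38e-05). AttC, an attacin against bacteria, had 69.7, 125 and 47.9 at 29 °C, against 468, 233 and 723 CPM at 18 °C (log2 -2.54 ± 0.45, edgeR adjusted p = 1.31e-04). CecA1, a cecropin, had 1.32, 3.72 and 3.86 at 29 °C, against 21.3, 5.38 and 47.9 CPM at 18 °C (log2 -3.15, edgeR adjusted p = 1.30e-04, and -2.23 without knockdown 18 °C library 3). Def, the defensin, had 61.0, 66.8 and 66.2 at 29 °C, against 66.2, 34.6 and 38.5 CPM at 18 °C in knockdown heads, where the groups overlapped (log2 0.47 ± 0.21, edgeR adjusted p = 0.0812). In control heads Def had 18.3, 17.2 and 20.4 at 29 °C, against 47.2, 35.4 and 74.9 CPM at 18 °C, lower in warmth (interaction log2 1.91 ± 0.31, edgeR adjusted p = 0.0011). Without the 3 libraries high in antennal genes the log2 fold change of Def in knockdown heads was -0.03. Bomanins and related peptides of the Toll response had 1 raised and 11 lowered of 18, at a median of -0.61 in knockdown and -0.21 in control heads. All 11 lowered genes passed in every fit without 1 library. IM23 (BomBc1) had 108, 174 and 149.8 at 29 °C, against 937, 367 and 612 CPM at 18 °C (log2 -2.15 ± 0.23, edgeR adjusted p = 2.29e-07), and CG15068 (BomS6) rose against the trend, with 3132, 3673 and 3933 at 29 °C, against 1639, 1319 and 1446 CPM at 18 °C (log2 1.29 ± 0.11, edgeR adjusted p = 8.46e-09). Antimicrobial peptide counts became 0 raised and 4 lowered without the antennal libraries.

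IM2 (BomS2) had 1501, 1922 and 1900.3 at 29 °C, against 4943, 2321 and 3656 CPM at 18 °C (log2 -1.04 ± 0.17, edgeR adjusted p = 4.75e-05). CG18067 (Bombardier), which short bomanins need, had 976, 1181 and 921 at 29 °C, against 3169, 2216 and 3537 CPM at 18 °C (log2 -1.54 ± 0.13, edgeR adjusted p = 1.33e-08). In both the warm libraries were lower, and 18 °C library 2 was the lowest of the cool ones. IMPPP and CG33470, a pair of baramicin copies with nearly equal counts, had 554, 862 and 762 at 29 °C, against 3134, 1359 and 2608 CPM at 18 °C for IMPPP (log2 -1.71 ± 0.20, edgeR adjusted p = 1.02e-06). For the bomanin list, 2 of 18 passed the test of the difference between genotypes, CG15065 and CG5778. That number was 13 without knockdown 18 °C library 2, 11 without the 3 libraries high in antennal genes and 0 without those low in roX1. Of Toll and Imd signalling 6 of 18 genes were lowered and none raised, Dif, a transcription factor of the Toll pathway, first. It had 34.8, 33.8 and 28.1 at 29 °C, against 54.3, 53.8 and 55.1 CPM at 18 °C (log2 -0.75 ± 0.09, edgeR adjusted p = 1.60e-06) and fell more than in control heads (interaction log2 -0.54 ± 0.12, edgeR adjusted p = 0.0186), a difference not past the threshold without knockdown 29 °C library 3 or control 29 °C library 3. Recognition proteins had 1 raised and 6 lowered of 17 (raised members numbered 2 without knockdown 18 °C library 1 or 3). Among them PGRP-LB, an amidase that degrades peptidoglycan, had 10.2, 12.8 and 8.75 at 29 °C, against 16.5, 22.2 and 24.3 CPM at 18 °C in knockdown heads. Its change differed from that in control heads (interaction log2 -1.08 ± 0.25, edgeR adjusted p = 0.0228), a difference not past the threshold without knockdown 29 °C library 1 or 3 or knockdown 18 °C library 3 or control 29 °C library 1 or 2 or control 18 °C library 3. Recognition protein counts became 0 raised and 8 lowered with totals alone.

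The stress peptides TotA, TotC and TotM fell, by 1.10, 1.64 and 1.35 on the log2 scale (edgeR adjusted p = 1.74e-05, 1.56e-05 and 4.75e-05). TotC had 41.8, 34.4 and 82.4 at 29 °C, against 183, 151 and 148 CPM at 18 °C, with 29 °C library 3 the highest of the warm ones. bsk, the fly JNK kinase, had 82.8, 86.6 and 79.3 at 29 °C, against 135, 134 and 129 CPM at 18 °C (log2 -0.68 ± 0.08, edgeR adjusted p = 1.22e-06). It was 1 of 3 lowered genes of 12 in JAK-STAT and JNK signalling (lowered members numbered 1 without knockdown 29 °C library 3). JAK-STAT and JNK counts became 0 raised and 7 lowered with totals alone and 0 and 1 without the antennal libraries.

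Core clock genes fell. Of 8 tested, 5 were lowered and none raised, and these 5 passed in every fit without 1 library. tim, whose protein is degraded in light, had 59.9, 58.8 and 61.5 at 29 °C, against 151, 160.1 and 173 CPM at 18 °C (log2 -1.43 ± 0.08, edgeR adjusted p = 2.93e-11). per, its partner in repression, had 11.3, 16 and 14.2 at 29 °C, against 31.1, 30.6 and 34.3 CPM at 18 °C (log2 -1.21 ± 0.13, edgeR adjusted p = 2.53e-07). vri, a repressor of Clk, had 78.6, 82.8 and 87.5 at 29 °C, against 203, 218 and 212 CPM at 18 °C (log2 -1.35 ± 0.08, edgeR adjusted p = 5.56e-11), and cwo fell by 0.89 on the log2 scale (edgeR adjusted p = 6.58e-06). The fold changes in control heads were -1.38, -1.12, -1.12 and -0.75 on the log2 scale, and no clock gene passed the test of the difference. Since the hour of collection is not given, a shift of phase and a change of mean level cannot be told apart. Clock kinases and degradation factors had 1 of 11 lowered, mts (lowered members numbered 0 without knockdown 29 °C library 1 or 2 and 2 without knockdown 29 °C library 3). Clock kinase and degradation counts became 0 raised and 6 lowered with totals alone and 0 and 0 without the antennal libraries.

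Genes of the eye rose on balance. Of 28 genes of the phototransduction cascade 14 were raised and 4 lowered, which became 8 and 8 with totals alone. norpA, the phospholipase C of photoreceptors, had 478, 497 and 478 at 29 °C, against 202, 207 and 209 CPM at 18 °C, 2.35-fold higher (log2 1.23 ± 0.08, edgeR adjusted p = 3.10e-10). Galphaq, the G protein upstream of norpA, had 499, 544 and 537 at 29 °C, against 298, 265 and 249 CPM at 18 °C (log2 0.96 ± 0.08, edgeR adjusted p = 1.51e-08). trpl, a light-gated channel, had 824, 793 and 820.0 at 29 °C, against 414, 446 and 436 CPM at 18 °C (log2 0.91 ± 0.07, edgeR adjusted p = 5.79e-09) and rose less than in control heads (interaction log2 -0.48 ± 0.10, edgeR adjusted p = 0.0121). stops, needed for norpA protein, rose by log2 0.91 (edgeR adjusted p = 1.53e-07). Of 7 rhodopsins 2 were raised and 2 lowered (raised members numbered 1 without knockdown 18 °C library 3 and lowered members numbered 1 without knockdown 29 °C library 1, 2 or 3 or knockdown 18 °C library 1 or 2 or control 29 °C library 2 or control 18 °C library 1). Rh5, the blue opsin of inner photoreceptors, had 376, 364 and 376 at 29 °C, against 460.5, 467 and 418 CPM at 18 °C, lower in every warm library (log2 -0.27 ± 0.08, edgeR adjusted p = 0.00932). The photoreceptor markers summed to 37909 to 39521 CPM at 29 °C and 24872 to 27079 CPM at 18 °C, and of the 5 markers ninaE, trp, Arr2 and chp were higher and ninaC lower in every warm library. Rhodopsin counts became 1 raised and 3 lowered with totals alone and 2 and 0 without the antennal libraries.

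Pigment genes of the eye moved both ways. Pu, the first enzyme of pteridine synthesis, had 65.6, 77.9 and 76.2 at 29 °C, against 190.1, 198 and 194 CPM at 18 °C (log2 -1.40 ± 0.08, edgeR adjusted p = 4.79e-11). se, a later pteridine enzyme, had 32.3, 37.7 and 37.9 at 29 °C, against 64.0, 60.2 and 50.7 CPM at 18 °C (log2 -0.69 ± 0.11, edgeR adjusted p = 3.63e-05). v, the first enzyme of the brown ommochromes, had 139.8, 169.7 and 169.7 at 29 °C, against 84.8, 87.1 and 78.5 CPM at 18 °C (log2 0.94 ± 0.09, edgeR adjusted p = 1.25e-07). bw, a pteridine transporter, had 29.1, 26.8 and 34.2 at 29 °C, against 9.72, 14.5 and 14.9 CPM at 18 °C (log2 1.19 ± 0.14, edgeR adjusted p = 1.11e-06). Pu and se were lower, and v and bw higher, in every warm library. In all, 5 of 19 eye pigment genes were raised (26.3%) and 3 lowered (15.8%), beside 16.6% and 18.9% of all tested genes. With totals alone these counts became 4 and 6. Genes of catecholamines and body pigment had 1 raised and 8 lowered of 19 (raised members numbered 2 without control 29 °C library 3 or control 18 °C library 3 and 3 without knockdown 18 °C library 1). The raised gene was y, which is needed for black melanin, with 14.9, 22.8 and 21.1 at 29 °C, against 4.86, 4.37 and 3.28 CPM at 18 °C in knockdown heads (log2 2.25 ± 0.25, edgeR adjusted p = 4.16e-07). Control heads had 0.204, 0.798 and 0.935 at 29 °C, against 2.35, 2.85 and 1.87 CPM at 18 °C for y, lower in warmth, and the difference passed the test (interaction log2 4.11 ± 0.52, edgeR adjusted p = 1.05e-04). Knockdown and control flies also differ in the RNAi transgene, and its part in the values of y was not tested. ple, the tyrosine hydroxylase of dopamine synthesis, had 15.1, 19.4 and 23.7 at 29 °C, against 35.6, 35.7 and 42.6 CPM at 18 °C (log2 -0.998 ± 0.15, edgeR adjusted p = 2.18e-05). b, which makes beta-alanine for tanning, had 71.2, 84.5 and 82.9 at 29 °C, against 149, 164 and 142 CPM at 18 °C (log2 -0.93 ± 0.09, edgeR adjusted p = 6.70e-08). Catecholamine and body pigment counts became 1 raised and 4 lowered without the antennal libraries.

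Glial markers fell, 9 of 13 lowered and 1 raised at a median of -0.55. alrm, a gene of astrocytes, had 65.0, 75.6 and 81.4 at 29 °C, against 154, 142 and 142 CPM at 18 °C (log2 -0.98 ± 0.11, edgeR adjusted p = 8.06e-07). Gat, the GABA transporter of glia, had 47.0, 48.8 and 47.4 at 29 °C, against 89.9, 103 and 95.8 CPM at 18 °C (log2 -1.01 ± 0.09, edgeR adjusted p = 4.71e-08). Eaat1, their glutamate transporter, had 184, 203 and 206 at 29 °C, against 305, 319.6 and 321 CPM at 18 °C (log2 -0.67 ± 0.08, edgeR adjusted p = 1.64e-06). All 3 genes were lower in every warm library, and no glial marker passed the test of the difference between genotypes. Synaptic vesicle release had 3 of 14 raised (21.43%, beside 16.6% of all tested genes) and 0 lowered, but 1 and 3 with totals alone (lowered members numbered 1 without control 29 °C library 1). Snap25, of the vesicle fusion complex, had 342, 384 and 371 at 29 °C, against 272, 274 and 275 CPM at 18 °C (log2 0.42 ± 0.08, edgeR adjusted p = 4.65e-04). Of the transmitter genes 2 were raised and 2 lowered of 19, where raised members numbered 1 without knockdown 29 °C library 2 or 3 or knockdown 18 °C library 1 or 2 and 4 without knockdown 18 °C library 3 and lowered members numbered 1 without knockdown 29 °C library 3 or knockdown 18 °C library 2. Gad1, which makes GABA, had 138, 158 and 153 at 29 °C, against 212, 222 and 221 CPM at 18 °C (log2 -0.54 ± 0.08, edgeR adjusted p = 3.07e-05). Ion channels had 1 raised and 2 lowered of 19, where raised members numbered 2 without knockdown 29 °C library 2 and lowered members numbered 0 without knockdown 29 °C library 2 and 1 without knockdown 29 °C library 1 or knockdown 18 °C library 1 or 3. The presynaptic calcium channel cac had 47.6, 45.6 and 45.6 at 29 °C, against 31.6, 28.3 and 37.6 CPM at 18 °C (log2 0.49 ± 0.11, edgeR adjusted p = 0.00153). Of 5 tested thermosensory and mechanosensory channels wtrw was called, with 80.1, 75.6 and 72.3 at 29 °C, against 112, 120.1 and 109 CPM at 18 °C (log2 -0.58 ± 0.08, edgeR adjusted p = 7.84e-06). The cell-surface dpr, DIP, beat and side genes had 2 raised and 5 lowered of 52 (lowered members numbered 1 without knockdown 18 °C library 1 and 2 without knockdown 29 °C library 1 or 3 or knockdown 18 °C library 3). Transmitter gene counts became 0 raised and 5 lowered with totals alone and 2 and 1 without the antennal libraries. Ion channel counts became 1 raised and 0 lowered without the antennal libraries. Cell-surface gene counts became 1 raised and 9 lowered with totals alone and 1 and 1 without the antennal libraries.

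Among neuropeptides 9 were raised and 4 lowered of 31, which became 6 and 7 with totals alone. Dsk, a satiety peptide, had 146, 179 and 160.4 at 29 °C, against 82.4, 85.4 and 69.3 CPM at 18 °C (log2 1.04 ± 0.10, edgeR adjusted p = 1.22e-07). CNMa, a peptide precursor, had 9.45, 8.73 and 7.21 at 29 °C, against 0, 0 and 0.437 CPM at 18 °C, so nearly all its reads came from warm heads (edgeR adjusted p = 1.11e-06), and so few counts at 18 °C do not set a fold. Nplp3, another peptide precursor, had 973, 1022 and 1028 at 29 °C, against 2146, 1962 and 1819 CPM at 18 °C (log2 -0.97 ± 0.13, edgeR adjusted p = 4.04e-06) and fell less than in control heads (interaction log2 1.07 ± 0.18, edgeR adjusted p = 0.00151). That difference of Nplp3 did not pass without the 3 libraries high in antennal genes. In the insulin pathway 1 was raised and 6 lowered of 17, where raised members numbered 0 without knockdown 29 °C library 1 or 2 or knockdown 18 °C library 2 or 3 and 2 without knockdown 29 °C library 3 or knockdown 18 °C library 1. Among the called was Ilp5, an insulin of brain cells, with 21.0, 23.6 and 28.1 at 29 °C, against 47.3, 33.3 and 38.5 CPM at 18 °C (log2 -0.73 ± 0.13, edgeR adjusted p = 9.85e-05). Jheh1, which breaks down juvenile hormone, had 58.4, 56.7 and 61.8 at 29 °C, against 130.4, 132 and 109.8 CPM at 18 °C (log2 -1.07 ± 0.10, edgeR adjusted p = 2.49e-08). Its list had 1 raised and 2 lowered of 8 (raised members numbered 0 without knockdown 29 °C library 2 or 3 or knockdown 18 °C library 2 or 3). Nuclear receptors and ecdysone genes had 2 raised and 3 lowered of 17 (raised members numbered 0 without knockdown 18 °C library 3 and 1 without knockdown 29 °C library 2 or 3 or knockdown 18 °C library 2 and lowered members numbered 0 without knockdown 29 °C library 3 and 1 without knockdown 29 °C library 2 or knockdown 18 °C library 1 or 3). Insulin pathway counts became 0 raised and 7 lowered with totals alone and 1 and 3 without the antennal libraries. Juvenile hormone gene counts became 0 raised and 4 lowered with totals alone and 0 and 2 without the antennal libraries. Nuclear receptor and ecdysone counts became 1 raised and 3 lowered with totals alone and 0 and 0 without the antennal libraries.

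Muscle genes fell almost as a set: 17 of 19 sarcomere proteins were lowered and none raised, at a median of -0.93 in knockdown and -0.93 in control heads. TpnC25D, a troponin C, had 170.1, 141 and 148 at 29 °C, against 558, 575 and 502 CPM at 18 °C, 3.57-fold lower (log2 -1.83 ± 0.10, edgeR adjusted p = 4.11e-11). Zasp66 and Zasp52, of the Z disc, and Mf, myofilin of thick filaments, fell by 1.11, 1.19 and 0.99 on the log2 scale (edgeR adjusted p = 9.61e-10, 1.83e-08 and 1.30e-08). The flight muscle markers fln, Act88F and TpnC4 summed to 0.567 to 2.91 CPM at 29 °C and 3.51 to 8.07 CPM at 18 °C. The part of thorax tissue in these results was not tested. Of 6 actins 2 were lowered (raised members numbered 1 without knockdown 18 °C library 3 and lowered members numbered 1 without knockdown 29 °C library 1, 2 or 3 or knockdown 18 °C library 2). Act57B, a muscle actin, had 454, 378 and 415 at 29 °C, against 918, 946 and 923 CPM at 18 °C (log2 -1.16 ± 0.12, edgeR adjusted p = 2.25e-07), and Act79B, of legs and thorax, had 42.3, 28.8 and 41.2 at 29 °C, against 71.6, 388 and 64.1 CPM at 18 °C, where 18 °C library 2 alone was high (log2 -2.20 ± 0.72, edgeR adjusted p = 0.0209). Its log2 fold change was -0.87 without knockdown 18 °C library 2, and it was not past the threshold without knockdown 29 °C library 1, 2 or 3 or knockdown 18 °C library 2 (edgeR adjusted p 0.0505 to 0.354). Of the actins 1 was lowered without the antennal libraries.

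Cuticle proteins had 3 raised and 23 lowered of 35 at a median of -0.85. Cpr62Bb had 10.2, 9.70 and 9.01 at 29 °C, against 48.3, 45.1 and 49.4 CPM at 18 °C (log2 -2.30 ± 0.14, edgeR adjusted p = 7.21e-11), and Cpr49Ae fell by 1.40 on the log2 scale (edgeR adjusted p = 5.13e-08). Cpr72Ec, known from the corneal lens, rose, with 396, 419.6 and 364 at 29 °C, against 85.3, 64.2 and 67.3 CPM at 18 °C (log2 2.44 ± 0.11, edgeR adjusted p = 1.50e-12), and rose less than in control heads (interaction log2 -0.81 ± 0.15, edgeR adjusted p = 0.00485). Vacuolar proton pumps, which acidify organelles, had 9 lowered and none raised of 12 (lowered members numbered 5 without knockdown 29 °C library 1 or knockdown 18 °C library 1). Vha55, a subunit of the pump, had 298, 303 and 301 at 29 °C, against 382, 404 and 364 CPM at 18 °C (log2 -0.35 ± 0.07, edgeR adjusted p = 7.03e-04). Cuticle protein counts became 1 raised and 17 lowered without the antennal libraries. Proton pump counts became 0 raised and 4 lowered without the antennal libraries.

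Detoxifying enzymes went both ways. Cytochrome P450 genes had 14 raised and 21 lowered of 66 (21.2% and 31.8%, beside 16.6% and 18.9% of all tested genes). Cyp6d5 had 144, 147 and 164 at 29 °C, against 383, 381 and 352 CPM at 18 °C (log2 -1.30 ± 0.08, edgeR adjusted p = 1.25e-10), and Cyp9f2 and Cyp6a17, of which Cyp6a17 is linked to temperature preference in flies, fell by 1.11 and 0.99 on the log2 scale (edgeR adjusted p = 1.57e-09 and 1.04e-08). Cyp4d1 rose, with 26.6, 27.8 and 21.1 at 29 °C, against 7.02, 5.72 and 5.25 CPM at 18 °C (log2 2.09 ± 0.17, edgeR adjusted p = 8.70e-09). Glutathione S-transferases had 4 raised and 10 lowered of 29, with GstD2 at 3.21, 4.36 and 2.83 at 29 °C, against 22.7, 24.9 and 27.1 CPM at 18 °C (log2 -2.80 ± 0.20, edgeR adjusted p = 8.19e-10). GstD9, of the same delta class, had 51.2, 60.3 and 60.5 at 29 °C, against 16.5, 24.6 and 16.2 CPM at 18 °C (log2 1.62 ± 0.13, edgeR adjusted p = 3.32e-09). GstD2 was lower and GstD9 higher in every warm library. UDP-glycosyltransferases had 4 raised and 5 lowered of 17 (raised members numbered 1 without knockdown 18 °C library 3 and 2 without knockdown 29 °C library 1 and lowered members numbered 3 without knockdown 29 °C library 1), Ugt86Da falling by 0.93 on the log2 scale (edgeR adjusted p = 2.25e-07). Cytochrome P450 counts became 7 raised and 16 lowered without the antennal libraries. UDP-glycosyltransferase counts became 1 raised and 6 lowered with totals alone and 1 and 3 without the antennal libraries.

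Metal and redox genes were also mixed. MtnA was the raised gene of 9 for metal handling and 5 were lowered, among them Fer1HCH and Fer2LCH, the ferritin chains, with 723, 721 and 732 at 29 °C, against 1024, 957 and 1054 CPM at 18 °C for Fer1HCH (log2 -0.48 ± 0.07, edgeR adjusted p = 2.18e-05). Antioxidant genes had 3 raised and 5 lowered of 16 (lowered members numbered 2 without knockdown 18 °C library 1 and 3 without knockdown 29 °C library 1). These are 18.75% and 31.25%, beside 16.6% and 18.9% of all tested genes. Jafrac1, a peroxiredoxin, had 679, 716 and 694 at 29 °C, against 478, 466 and 429 CPM at 18 °C (log2 0.61 ± 0.07, edgeR adjusted p = 1.45e-06). Prx2540-1, of the same family, had 40.6, 44.5 and 57.2 at 29 °C, against 99.4, 82.1 and 86.4 CPM at 18 °C (log2 -0.93 ± 0.13, edgeR adjusted p = 8.37e-06), and similar copies of it could share reads. Antioxidant counts became 1 raised and 3 lowered without the antennal libraries.

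Insulator genes, the group to which BEAF-32 belongs, had few calls. Of 19 insulator and boundary genes 4 were raised and 0 lowered (raised members numbered 2 without knockdown 29 °C library 3 and lowered members numbered 1 without knockdown 29 °C library 1), which turned to 0 and 2 with totals alone. The raised share was 21.05%, beside 16.6% of all tested genes. The cohesin subunits vtd and SMC1 were the firmest, with 44.8, 48.6 and 48.4 at 29 °C, against 37.8, 38.0 and 31.7 CPM at 18 °C for vtd (log2 0.41 ± 0.10, edgeR adjusted p = 0.00225). SMC1 had 24.2, 21.5 and 24.5 at 29 °C, against 15.1, 18.8 and 15.96 CPM at 18 °C (log2 0.50 ± 0.14, edgeR adjusted p = 0.00754). In neither did the groups overlap. Of 12 genes that write or erase histone H3 lysine 4 methylation 3 were raised and 1 lowered (raised members numbered 1 without knockdown 29 °C library 2), against 2 and 2 with totals alone. ash2, a subunit of the methyltransferase complexes, had 36.7, 43.8 and 41.7 at 29 °C, against 28.9, 28.6 and 27.1 CPM at 18 °C (log2 0.53 ± 0.10, edgeR adjusted p = 3.02e-04) and rose less than in control heads (interaction log2 -0.74 ± 0.14, edgeR adjusted p = 0.00503). That difference of ash2 did not pass without the 3 libraries high in antennal genes. Of the histones 6 of 33 passed the filter, and 4 of these were raised, His4r with 1236, 1117 and 1117 at 29 °C, against 806, 838 and 716 CPM at 18 °C (log2 0.56 ± 0.08, edgeR adjusted p = 1.01e-05). Insulator gene counts became 1 raised and 0 lowered without the antennal libraries. Histone methylation gene counts became 1 raised and 0 lowered without the antennal libraries.

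Splicing factors of the SR group had 7 raised and 1 lowered of 14 (lowered members numbered 0 without knockdown 18 °C library 3 or knockdown 29 °C library 3). B52 and Srp54 rose by log2 0.50 and 0.53 (edgeR adjusted p = 1.50e-04 and 2.56e-04). Among genes that set the ends of mRNAs 6 were raised and 2 lowered of 15 (lowered members numbered 1 without knockdown 29 °C library 3 or knockdown 18 °C library 2 or 3). elav and fne, RNA-binding proteins of neurons that lengthen 3' ends, rose. elav had 63.7, 55.0 and 58.2 at 29 °C, against 36.2, 29.3 and 35.0 CPM at 18 °C (log2 0.80 ± 0.10, edgeR adjusted p = 2.71e-06). fne had 97.1, 79.4 and 86.8 at 29 °C, against 50.0, 50.1 and 65.4 CPM at 18 °C (log2 0.66 ± 0.12, edgeR adjusted p = 2.41e-04). Pabp2, the nuclear poly(A)-binding protein, fell (log2 -0.89, edgeR adjusted p = 7.66e-04). In the small RNA machinery 2 were raised and 1 lowered of 10 (raised members numbered 1 without knockdown 29 °C library 3 or knockdown 18 °C library 2 or 3). loqs, a partner of Dicer, had 124, 136 and 132 at 29 °C, against 94.3, 88.1 and 77.8 CPM at 18 °C (log2 0.60 ± 0.09, edgeR adjusted p = 2.54e-05). AGO2, the siRNA slicer, had 42.3, 49.8 and 45.8 at 29 °C, against 61.9, 63.9 and 64.3 CPM at 18 °C (log2 -0.46 ± 0.10, edgeR adjusted p = 0.00112). DNA replication genes had 7 of 15 lowered and none raised (lowered members numbered 4 without knockdown 29 °C library 1 or knockdown 18 °C library 3). The licensing factor dup had 6.80, 6.95 and 6.44 at 29 °C, against 29.7, 38.7 and 26.0 CPM at 18 °C (log2 -2.19 ± 0.18, edgeR adjusted p = 9.93e-09). SR group counts became 6 raised and 2 lowered with totals alone and 6 and 0 without the antennal libraries. End-setting gene counts became 3 raised and 2 lowered with totals alone and 3 and 1 without the antennal libraries. Small RNA counts became 1 raised and 1 lowered without the antennal libraries. DNA replication counts became 1 raised and 3 lowered without the antennal libraries.

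Odorant-binding proteins, small carriers of odours in antennal and gustatory fluid, had 7 raised and 16 lowered of 29 tested, at a median of -0.58. In some of the lowered genes all cool libraries were high. Obp99a had 546, 501 and 534 at 29 °C, against 2093, 1551 and 1659 CPM at 18 °C (log2 -1.75 ± 0.18, edgeR adjusted p = 1.98e-07), and fell less than in control heads (interaction log2 1.87 ± 0.26, edgeR adjusted p = 2.16e-04). Obp57d, expressed in taste organs, had 46.5, 46.4 and 48.1 at 29 °C, against 84.8, 81.4 and 88.3 CPM at 18 °C (log2 -0.86 ± 0.08, edgeR adjusted p = 4.99e-08). Its neighbour Obp57a had 14.7, 22.3 and 21.9 at 29 °C, against 54.8, 39.0 and 45.3 CPM at 18 °C (log2 -1.25 ± 0.14, edgeR adjusted p = 5.38e-07). Obp28a had 0.378, 0.646 and 1.80 at 29 °C, against 19.2, 56.9 and 36.5 CPM at 18 °C, higher in every cool library (log2 -5.40 ± 0.60, edgeR adjusted p = 4.41e-07). Its log2 fold change was -6.07 without knockdown 29 °C library 3 and -4.45 without the 3 libraries high in antennal genes (edgeR adjusted p = 4.64e-04). Odorant-binding protein counts became 3 raised and 13 lowered without the antennal libraries.

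In others 2 of the 3 cool libraries were high. Obp83a had 0.945, 0.323 and 1.03 at 29 °C, against 1.35, 69.0 and 43.9 CPM at 18 °C, so that 18 °C library 1 was near the warm ones. Obp19a had 0.189, 0.162 and 0.258 at 29 °C, against 1.62, 20.2 and 13.1 CPM at 18 °C. Obp69a had 0.756, 0.485 and 1.03 at 29 °C, against 2.16, 17.2 and 9.40 CPM at 18 °C. In all 3, 18 °C library 2 was highest and 18 °C library 1 lowest of the cool ones. They were called lower in warmth, at log2 -5.65, -5.69 and -3.64 (edgeR adjusted p = 9.29e-05, 2.57e-04 and 1.01e-04). These log2 fold changes became -4.98 without knockdown 18 °C library 2 for Obp83a and -3.02 without knockdown 18 °C library 2 for Obp69a. Without 18 °C libraries 2 and 3 and control 29 °C library 1, Obp19a gave log2 -2.90, Obp69a gave log2 -1.55, and Obp83a had too few counts to test. Those libraries were picked because they are high in such genes, so smaller falls without them follow from that choice. a10, another antennal protein, had 4.72, 4.85 and 5.66 at 29 °C, against 1.35, 65.6 and 33.2 CPM at 18 °C, where the groups overlapped (log2 -2.68 ± 0.65, edgeR adjusted p = 0.00283). Its log2 fold change was -1.85 without knockdown 18 °C library 2, and its sign turned to log2 1.88 without the same libraries. Jhedup, an esterase like that of juvenile hormone, had 0, 0.162 and 0.515 at 29 °C, against 4.86, 33.6 and 15.1 CPM at 18 °C, again highest in 18 °C library 2 (edgeR adjusted p = 4.97e-05, and log2 -5.54 without knockdown 18 °C library 2 and -7.26 without knockdown 29 °C library 3). Orco, the shared odorant co-receptor, had 0.189, 0 and 0.515 at 29 °C, against 2.70, 6.05 and 2.84 CPM at 18 °C, where a few counts carry the call (edgeR adjusted p = 1.59e-04, and log2 -3.40 without knockdown 29 °C library 2 and -5.05 without knockdown 29 °C library 3). The antennal markers Orco, Snmp1, Obp19d, Obp83a, Obp83b and lush summed to 755 to 886 CPM at 29 °C and 1099 to 1531 CPM at 18 °C, of which Obp19d made up most, and their part in these results was not tested.

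Control heads changed on a like scale. The 3439 genes called there (38.0%) rest on fold changes between other libraries than those of knockdown heads, though one fit over all 12 libraries gave both and shares its estimate of the spread. Of the genes raised in knockdown heads 67.9% were raised in control heads too, and of those raised in control heads 62.2% were raised in knockdown heads. For lowered genes these shares were 70.1% and 66.8%. In 19 genes a rise in knockdown heads met a fall in control heads, and in 12 genes the reverse held. Across genes, which are not independent replicates, the log2 fold changes of the genotypes had a Pearson correlation of 0.673, given as a description.

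Of the 209 genes whose difference between the genotypes passed the test (2.31%), 126 had the higher fold change in knockdown and 83 in control heads. The genotypes differ in the RNAi transgene as well as in BEAF-32 level, and these cannot be told apart here. Of the 964 genes called in knockdown and not in control heads, 64 passed the test of the difference, and of the 1187 called in control heads alone, 61 did. The count was 138 without knockdown 29 °C library 3, 122 without control 29 °C library 3, 80 without the 3 libraries high in antennal genes, and 97 genes passed in every fit without 1 library.

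Several genes fell in warmth in control heads and did not fall, or fell less, in knockdown heads. CG8665, an enzyme of folate metabolism by annotation, had 30.1, 28.6 and 33.7 at 29 °C, against 35.6, 33.3 and 38.5 CPM at 18 °C in knockdown heads, with no difference past the test (log2 -0.24 ± 0.13, edgeR adjusted p = 0.164). Control heads had 9.57, 6.58 and 10.1 at 29 °C, against 51.0, 44.3 and 58.9 CPM at 18 °C for CG8665 (interaction log2 2.29 ± 0.20, edgeR adjusted p = 1.28e-06). CG5999, a UDP-glycosyltransferase, had 4.91, 7.27 and 9.27 at 29 °C, against 9.18, 5.05 and 9.62 CPM at 18 °C in knockdown heads, where the groups overlapped. In control heads it had 0.407, 0.200 and 1.31 at 29 °C, against 7.95, 8.68 and 9.10 CPM at 18 °C (interaction log2 3.44 ± 0.53, edgeR adjusted p = 6.60e-04, and log2 4.49 without control 29 °C library 3). smp-30, a relative of the calcium-binding protein regucalcin, also named Dca and known from cold acclimation in flies, moved in opposite directions. It had 77.5, 81.6 and 80.1 at 29 °C, against 45.6, 45.8 and 40.0 CPM at 18 °C in knockdown heads, higher in warmth. Control heads had 57.5, 58.6 and 55.3 at 29 °C, against 90.7, 111 and 81.9 CPM at 18 °C for smp-30, lower in warmth (interaction log2 1.61 ± 0.14, edgeR adjusted p = 1.45e-06). Pgd, of the pentose phosphate path, and Prat2, of purine synthesis, did too, at log2 0.26 and 0.49 in knockdown and -0.86 and -0.48 in control heads (edgeR adjusted p of the differences 3.28e-05 and 8.04e-05). In knockdown heads Pgd was not past the threshold without knockdown 29 °C library 1 or 3 or knockdown 18 °C library 2 or 3 (edgeR adjusted p 0.0553 to 0.0927). CG3699 had 152, 220.1 and 174 at 29 °C, against 94.3, 93.8 and 58.8 CPM at 18 °C in knockdown heads. In control heads it had 151, 145 and 145 at 29 °C, against 223, 217 and 246 CPM at 18 °C, again in the other direction (interaction log2 1.79 ± 0.20, edgeR adjusted p = 3.02e-05).

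Other genes rose or fell in knockdown heads and changed by less, or the other way, in control heads, and CG9377 changed more there. Cyp12d1-p, a P450 induced by foreign compounds, had 23.8, 19.2 and 21.6 at 29 °C, against 5.94, 8.41 and 7.65 CPM at 18 °C in knockdown heads. Cyp12d1-p in control heads had 18.9, 14.2 and 13.8 at 29 °C, against 18.1, 22.9 and 19.3 CPM at 18 °C, where the groups overlapped (interaction log2 1.93 ± 0.24, edgeR adjusted p = 8.04e-05). Its near copy Cyp12d1-d gave 6.42, 4.69 and 5.66 at 29 °C, against 1.89, 3.03 and 1.75 CPM at 18 °C in knockdown heads (interaction log2 2.00 ± 0.36, edgeR adjusted p = 0.00318), and the counting could split reads between them. arg, the arginase, had 24.4, 18.1 and 22.7 at 29 °C, against 3.51, 7.40 and 6.12 CPM at 18 °C in knockdown heads. Control heads had arg at 9.37, 8.18 and 7.67 at 29 °C, against 5.60, 10.0 and 8.83 CPM at 18 °C, where the groups overlapped (interaction log2 1.91 ± 0.33, edgeR adjusted p = 0.00221). CG43448 fell in knockdown heads, with 3.59, 4.36 and 5.15 at 29 °C, against 12.2, 13.8 and 16.6 CPM at 18 °C. The control heads gave 17.3, 19.9 and 19.6 at 29 °C, against 16.8, 16.1 and 15.3 CPM at 18 °C, with no difference past the test (interaction log2 -1.96 ± 0.24, edgeR adjusted p = 7.82e-05). CG34136 moved in opposite directions, with 28.7, 24.9 and 29.1 at 29 °C, against 38.1, 59.5 and 58.4 CPM at 18 °C in knockdown heads, lower in warmth. In the control, CG34136 had 28.5, 19.8 and 35.9 at 29 °C, against 11.8, 13.3 and 18.2 CPM at 18 °C, higher in warmth (interaction log2 -1.92 ± 0.27, edgeR adjusted p = 2.51e-04). CG9377 rose in both, with 53.3, 44.9 and 46.3 at 29 °C, against 8.91, 12.4 and 7.21 CPM at 18 °C in knockdown heads, and by a larger log2 fold change of 4.16 in control heads (interaction log2 -1.78 ± 0.30, edgeR adjusted p = 0.00144).

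**Figure D4:**
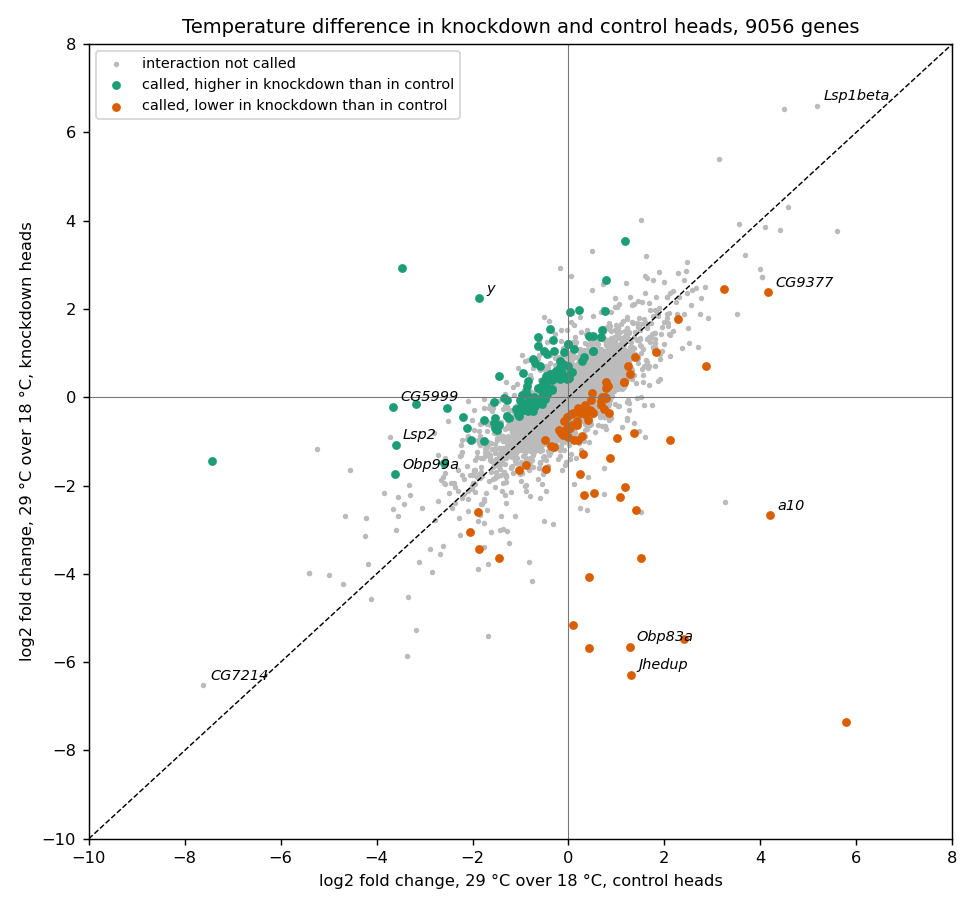
Log2 fold change of 29 °C over 18 °C for each of 9056 genes, in knockdown heads on the vertical and in control heads on the horizontal axis, with the dashed line at equal values. Colours mark the 126 genes whose difference between genotypes passed the test with the higher value in knockdown heads (green) and the 83 with the lower value (orange), and y, Lsp2 and Obp99a lie among the green, Jhedup, Obp83a, a10 and CG9377 among the orange points.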

How the data were processed

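Heads of BEAF-32 knockdown and control flies kept at 29 °C or 18 °C were sequenced as polyadenylated RNA from 3' ends, 3 libraries per group. The authors deposited 1 table of raw read counts for 16719 genes, made with STAR or TopHat2 against dm3 per the submitters' processing notes; the counting program, annotation and use of strand are not given in the sources used here. All 12 count columns were matched to samples, while 42 further samples of the series were not analysed here. From the counts, edgeR 4.0.16 in R 4.3.3 was run on all 12 libraries in 4 groups, after filterByExpr (minimum count 10, minimum total 15), with TMM scaling, quasi-likelihood tests of the temperature difference in each genotype and of their difference (the interaction), and Benjamini-Hochberg adjustment over 9056 genes at 0.05. CPM values use TMM-scaled totals, and fold changes are fitted values. Genes with counts within 5% or 2 counts of another gene's in every library (138 of those tested) were treated as inseparable.

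Named genes were BEAF-32, up to 12 with the largest log2 fold change each way among those called in every fit without 1 library (mean of at least 5 CPM, no overlap), up to 5 each way by CPM difference, up to 4 called members of each of 70 gene lists with the smallest adjusted p, and up to 8 each way plus up to 6 opposite genes for the interaction. Gene lists were matched to the table's symbols directly (12673 symbols) or through synonyms (3900), with 146 unmatched. The comparison, lists and tests were chosen with earlier results of these data known. Alternatives were DESeq2 1.42.0, RLE factors, library totals alone, no filter, the knockdown libraries alone, a replicate block and leaving out single libraries or those high in antennal genes or low in roX1 for their group (control 18 °C library 2 and knockdown 29 °C library 1). Knockdown 18 °C libraries 1 and 3 had less roX1 than knockdown 29 °C library 1 and were kept. Control 29 °C library 1, with the least roX1 of its group, was kept too. No reference sequence was used here. One gene that the naming rule picks is not reported here.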

Additional observations from a re-analysis of the deposited data

Results flagged for a closer look

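The temperature response differed between BEAF-32 knockdown and control heads by a test of the difference itself in 209 genes (edgeR's quasi-likelihood test, adjusted p under 0.05), and the values here are interaction log2, the fold change in knockdown heads minus that in control heads.

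Among enzymes and storage proteins, the value was above 0 for y at 4.11, CG5999 at 3.44, Lsp2 at 2.52, CG8665 at 2.29, Cyp12d1-d at 2.00, Cyp12d1-p at 1.93, arg at 1.91, CG8147 at 1.86, CG3699 at 1.79, smp-30 at 1.61, Pgd at 1.12, Prat2 at 0.96, ATPCL at 0.85, AGBE at 0.83, Mal-B2 at 0.60 and Pgi at 0.43. It was below 0 for CG10924, at -3.08. Other genes above 0 were CG4500 at 2.34, Def at 1.91, Obp99a at 1.87, Nplp3 at 1.07, Lsd-1 at 0.93 and mRpL49 at 0.59.

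CG4500 had 11.9, 14.4 and 10.8 at 29 °C, against 0, 1.01 and 1.97 CPM at 18 °C in knockdown heads, where it rose from few counts (log2 3.53, edgeR adjusted p = 2.91e-06, and log2 4.72 without knockdown 18 °C library 3). In control heads it had 22.0, 11.4 and 16.8 at 29 °C, against 7.41, 5.56 and 10.2 CPM at 18 °C, with a smaller rise, and the difference was not past the threshold without knockdown 29 °C library 1 or 2 or knockdown 18 °C library 1 or 2 or control 29 °C library 3 or control 18 °C library 1 or 3 and log2 3.53 without knockdown 18 °C library 3. CG13044 had 0.378, 0.646 and 0.515 at 29 °C, against 5.94, 7.06 and 7.43 CPM at 18 °C in knockdown heads, lower in every warm library (log2 -3.65 ± 0.38, edgeR adjusted p = 2.05e-07). Control heads had 13.2, 13.4 and 11.6 at 29 °C, against 31.1, 31.3 and 43.9 CPM at 18 °C for CG13044. CG4306 had 16.8, 32.6 and 29.4 at 29 °C, against 38.9, 29.3 and 33.0 CPM at 18 °C in knockdown heads, where the groups overlapped (log2 -0.37 ± 0.16, edgeR adjusted p = 0.0914). In control heads CG4306 rose, with 83.3, 79.8 and 76.8 at 29 °C, against 46.3, 45.5 and 41.5 CPM at 18 °C (log2 0.84 ± 0.14, edgeR adjusted p = 4.21e-05).

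Antennal genes were below 0, with Jhedup at -7.60, Obp83a at -6.93, a10 at -6.88, Obp19a at -6.11, Obp69a at -5.15 and Orco at -4.50. The libraries high in these genes were knockdown 18 °C libraries 2 and 3 and control 29 °C library 1, which lie on opposite sides of the temperature comparison in the genotypes. Without these 3 libraries the value became -4.72 for Jhedup, -1.33 for a10, -0.31 for Obp19a, -2.50 for Obp69a and -3.23 for Orco. Obp83a had too few counts to test. The 3 libraries were picked because they are high in such genes, so a smaller difference without them follows from that choice and decides nothing. With only control 29 °C library 1 left out, Obp83a, Obp19a and Orco did not pass (edgeR adjusted p = 0.608, 0.592 and 0.155). Orco also missed the threshold without control 18 °C library 1 or 3 or knockdown 29 °C library 1 or 2, and Obp83a and Obp19a without any 1 of several other libraries.

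Other genes below 0 were CG13044 at -2.20, CG43448 at -1.96, CG34136 at -1.92, CG9377 at -1.78, CG4306 at -1.21, PGRP-LB at -1.08, dsx at -0.88, Cpr72Ec at -0.81, ash2 at -0.74, Thor at -0.68, Dif at -0.54 and trpl at -0.48. Of the 41 genes, 18 passed the test under every alternative tried. Without the 3 libraries high in antennal genes the differences of mRpL49, Mal-B2, Nplp3, PGRP-LB, dsx, ash2, Thor and Dif did not pass. That fit leaves 1 knockdown 18 °C library.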

How the results depend on the processing

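The count of 3216 genes called in knockdown heads stayed within 1.5 times under DESeq2 (2425), RLE factors (3224), totals alone (3327), no filter (3269), the knockdown libraries alone (3011) and without the libraries low in roX1 (2750). Leaving out 1 library gave 2665 to 3247. Without the 3 libraries high in antennal genes, which leaves 1 knockdown 18 °C library that is assumed to vary like the others, 1857 genes were called, 809 raised and 1048 lowered; with fewer libraries the fit also has less power. Totals alone left 911 raised, as this scaling moves all genes down. The interaction count of 209 became 423 with no filter, 80 without the antennal libraries, and 122 to 250 without 1 library; the cause was not tested.

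Same-numbered knockdown libraries had deviations correlated at -0.05 (number 2), -0.002 (number 3) and about 0 (number 1), so no shift shared by same-numbered libraries was seen. The labels do not state what a number marks. These values cannot show whether same-numbered libraries were collected or prepared together. With a replicate block 2992 genes were called (1395 raised, 1597 lowered), and 165 for the interaction.

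Signs turned for BEAF-32 (0.40 without the antennal libraries, -0.61 to 0.023 without 1 library), CG5999 (0.0005 without the libraries low in roX1), Def (-0.033) and a10 (1.88), both without the antennal libraries; only that of a10 passed a threshold before or after. Of 279 named genes called in knockdown heads 211 passed under every alternative. Of 67 list counts of 3 or more, 28 stayed within 1.5 times throughout. At 0.469 to 1.03 CPM for a count of 0, genes under a few CPM carry folds that 1 library can move.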

Other observations

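The pentose phosphate pathway, which makes NADPH and ribose from glucose, was looked at after the values of Pgd, Taldo and CG8036 had been seen. In knockdown heads 4 of its 7 listed genes were raised at 29 °C and none lowered, and the interaction passed the test for 6 of the 7, with the higher fold change in knockdown heads each time (2.31% of all tested genes passed). Pgd, Taldo and CG8036 are among these 6, so the choice of the list partly set this share, which is a description only. Between 3 and 5 passed without any 1 library, 3 without the libraries high in antennal genes, 3 with totals alone and 4 with DESeq2. Taldo, the transaldolase, had 547, 613 and 536 at 29 °C, against 311, 306 and 222 CPM at 18 °C in knockdown heads, higher in every warm library (log2 1.02 ± 0.11, edgeR adjusted p = 2.92e-07). Control heads had 528, 472 and 441 at 29 °C, against 487, 545 and 494 CPM at 18 °C for Taldo, where the groups overlapped (interaction log2 1.10 ± 0.15, edgeR adjusted p = 2.16e-04). CG8036, a transketolase, had 523, 545 and 504 at 29 °C, against 394, 359 and 334 CPM at 18 °C in knockdown heads (log2 0.53 ± 0.08, edgeR adjusted p = 2.30e-05). In control heads CG8036 had 589, 546 and 529 at 29 °C, against 637, 665 and 688 CPM at 18 °C, lower in warmth (interaction log2 0.79 ± 0.11, edgeR adjusted p = 2.83e-04). Zw, the glucose 6-phosphate dehydrogenase that opens the pathway, gave log2 -0.04 in knockdown and -0.78 in control heads, and the lactonase CG17333 gave 0.16 and -0.34 (edgeR adjusted p of the interaction 0.0489 and 0.0367). Rpi, the ribose 5-phosphate isomerase, rose in knockdown heads (log2 0.62 ± 0.11, edgeR adjusted p = 1.09e-04), and its interaction did not pass (edgeR adjusted p = 0.144). CG30499, the epimerase, had log2 0.68 in knockdown and -0.17 in control heads (interaction log2 0.86 ± 0.22, edgeR adjusted p = 0.0401).

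Genes outside the lists above included Galk, the galactokinase, with 198, 202 and 216 at 29 °C, against 183, 176 and 160.0 CPM at 18 °C in knockdown heads and a fall in control heads (interaction log2 0.80 ± 0.11, edgeR adjusted p = 2.07e-04). P5cr-2, which makes proline, had 63.5, 51.9 and 61.0 at 29 °C, against 26.7, 26.9 and 28.0 CPM at 18 °C in knockdown heads, higher in every warm library (interaction log2 0.99 ± 0.14, edgeR adjusted p = 2.07e-04). Of 179 listed chemosensory receptor genes 8 passed the filter on low counts, and 2 of these were raised and 2 lowered. The olfactory ionotropic receptors Ir76a and Ir75a rose in knockdown heads while Snmp1, a membrane protein of pheromone-sensing neurons, fell. Ir25a (log2 -0.54) and Ir76b (log2 0.99) were not called (edgeR adjusted p = 0.189 and 0.0526). Ir76a had 5.29, 5.66 and 5.41 at 29 °C, against 1.08, 2.35 and 1.09 CPM at 18 °C (log2 1.91 ± 0.34, edgeR adjusted p = 1.56e-04), Ir75a gave log2 1.89 and Snmp1 log2 -1.13 (edgeR adjusted p = 0.00149 and 0.0059). Without the 3 libraries high in antennal genes Ir76a passed (log2 2.31, edgeR adjusted p = 0.00749), and Ir75a (log2 1.62) and Snmp1 (log2 -0.81) did not (edgeR adjusted p = 0.0972 and 0.197). Galk, P5cr-2 and the pentose phosphate genes other than Pgd were chosen after their values were seen.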
